A study of Danio rerio with 12 samples.

Results

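Whole wild-type zebrafish larvae exposed to 20 mg/L PFOS (PFOS20, replicates 2, 3 and 4) were compared with untreated larvae of the same age (control, replicates 2, 3 and 4), at 4 days post fertilisation. These 6 poly(A) RNA-seq libraries were chosen by their labels out of 12 in the series, whose other 6 came from larvae exposed to OBS at 20 or 30 mg/L. The labels give neither the strain, the length of exposure, a solvent control nor the number of larvae pooled in a library. Whether the 3 libraries of a group came from different clutches is not stated either, so p-values measure only the spread between these samples, which may be technical. Expression was given as TPM, a relative abundance in which read counts are divided by gene length and scaled to 1 fixed total in every library, and the read depth behind the values is unknown. Of 44667 genes and assembled loci in the table, 28161 reached at least 1 TPM in 3 or more of the 6 libraries and were tested on the log2(TPM + 1) scale, which understates fold changes of low transcripts. Of these, 289 passed only through the PFOS20 libraries and 554 only through the controls.

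PFOS, perfluorooctane sulfonate, is a surfactant with a fully fluorinated carbon chain on a sulfonate group. It binds plasma proteins and fatty acid binding proteins and is known to accumulate in liver and blood. A zebrafish larva of this age has a beating heart, swimming muscle and a working retina, while its brain, lens and pancreas still add cells. Its defence against injury rests on innate cells, neutrophils and macrophages, and on a thin keratin-rich skin.

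In exposed larvae, called genes of inflammation, wound edges, slow muscle and glycolysis were mostly higher, and called genes of neurons, retina, dividing cells, splicing, exocrine pancreas, sterol synthesis and keratins mostly lower. limma with Benjamini-Hochberg adjustment called 7066 of 28161 genes and loci (25.1%) at an adjusted p below 0.05, 2270 higher (8.06%) and 4796 lower (17.0%) in PFOS20. At least a 2-fold difference was called for 701 higher genes (2.49%) and 1411 lower genes (5.01%). All 3 PFOS20 libraries lay above all 3 controls for 15.2% of genes and below them for 30.2%. This held for every called gene named below, in the direction of its call. Organs, cell types and functions are described through 107 gene lists, with 4532 members in the table, of which 3884 passed the filter and were tested. Their counts are to be read against the 8.06% higher and 17.0% lower over all genes, and shares near these are no result about a list. In the text, single values are the TPM of replicates 2, 3 and 4 in that order, and values with ± are means and SD of 3 libraries.

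The split between higher and lower calls moved with the scaling. The median log2 difference over all tested genes was -0.13 in the deposited TPM. After median-of-ratios scaling (rescaling below), which sets that median to 0.00, 4070 genes were higher (14.5%) and 4076 lower (14.5%). List counts after rescaling are to be read against these 2 shares. After quantile normalisation 3930 were higher (14.0%) and 4311 lower (15.3%). The share of calls that were higher was thus 32.1% as deposited, 50% and 47.7%. The libraries moved by unequal amounts, with medians over all genes of -0.25, -0.11 and -0.03 in PFOS20 replicates 2, 3 and 4 relative to the control mean. The 100 most abundant genes took 43.1%, 40.6% and 39.1% of all TPM in these libraries, against 38.2%, 38.8% and 38.9% in controls.

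Single libraries weighed on the counts, because each group has 3. The higher and lower counts were 988 and 1698 without PFOS20 replicate 3, 1283 and 2049 without control replicate 2, 1160 and 1822 without control replicate 3, and 1219 and 2040 without control replicate 4. Without PFOS20 replicates 2 and 4 they were 1879 and 2696, and 1932 and 6226. List counts of a fit are to be read against its counts here, of 28161 genes. Genes named below kept their call in all 6 of these fits unless a library is given beside them. This does not cover mt-atp6 and mt-co3, which were not in that tally. Below, "without 1 control" gives the range over each control left out in turn. The libraries held transcripts of the organs of a whole larva: of 22 defining markers of muscle, heart, neurons, lens, rods, liver, gut, pancreas, skin, blood, vessels, pigment and cartilage, 20 stood at 1 TPM or more in all 6 libraries. The enterocyte marker fabp2 lay between 0.95 and 3.36 TPM, and the macrophage marker mpeg1.1 between 0 and 2.88 TPM.

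**Figure D1:**
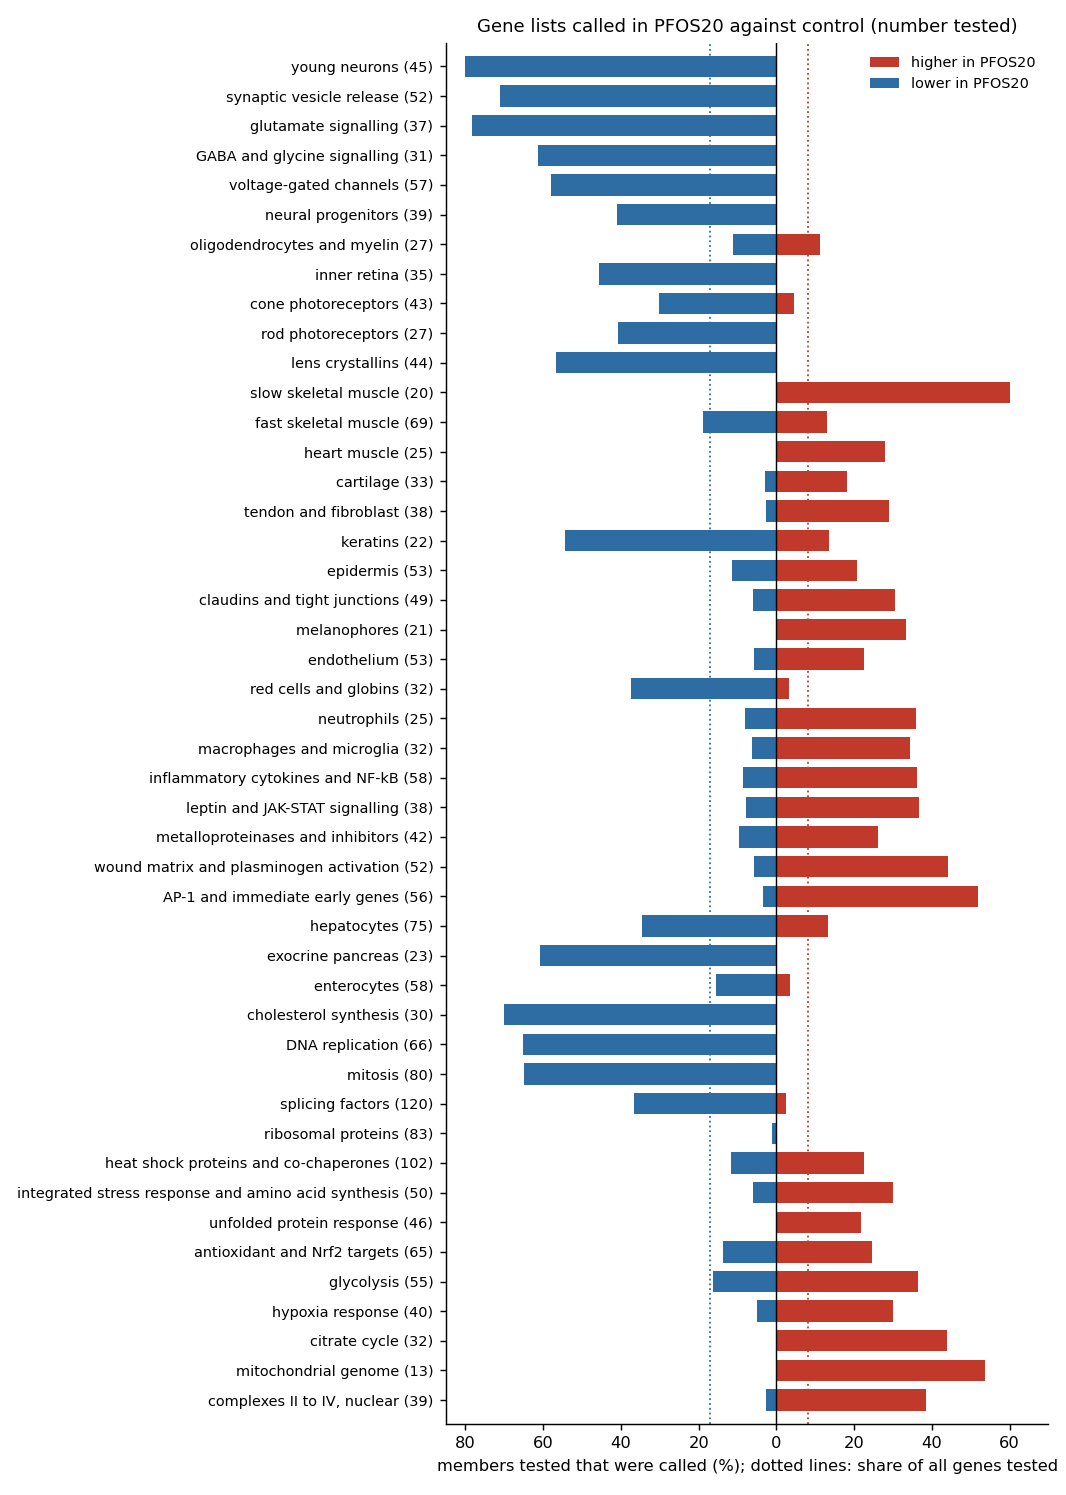
Share of the tested members of 46 gene lists called higher (bars to the right) or lower (bars to the left) in PFOS20 against control larvae, in percent, with the number tested in brackets. Dotted lines mark the share of all 28161 tested genes called lower (17.0%) and higher (8.06%): neuronal, replication and mitosis lists reach far past the lower line, and AP-1, wound, slow muscle and mitochondrial genome lists past the higher one.

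The 12 genes with the largest increases by the naming rule included cytokine, hormone and muscle genes, and also mmp9, mmp13a, fosl1a, tspan36 and hspb9, whose values stand with their groups. Leptin b, lepb, a cytokine-like hormone induced in regenerating fish tissue, had 40.9, 42.4 and 40.6 TPM in PFOS20, against 1.40, 0.52 and 0.89 TPM in controls. Interleukin 1 beta, il1b, had 36.4, 36.1 and 30.4 TPM in PFOS20, against 0.88, 1.55 and 0.60 TPM in controls. Every control library held under 2 TPM of both. Parathyroid hormone 1a, pth1a, which raises calcium, had 39.9, 45.9 and 34.9 TPM in PFOS20, against 1.11, 0.82 and 1.23 TPM in controls. Its paralog pth1b had 15.4, 17.0 and 11.7 TPM in PFOS20, against 1.97, 1.74 and 1.26 TPM in controls. The log2 differences were 4.47 ± 0.18 for lepb, 4.16 ± 0.19 for il1b, 4.32 ± 0.15 for pth1a and 2.56 ± 0.18 for pth1b (SE), with adjusted p of 2.9e-04, 3.8e-04, 2.1e-04 and 0.0011. Of the muscle genes, tnni4b.1, a troponin I, had 25.6, 35.2 and 22.8 TPM in PFOS20, against 2.07, 1.56 and 0.97 TPM in controls. ankrd1a, whose mammalian counterpart is a strain-responsive ankyrin repeat protein, had 21.4, 21.7 and 15.2 TPM in PFOS20, against 1.54, 2.72 and 1.11 TPM in controls. Both were higher in each PFOS20 library than in any control, with log2 differences of 3.51 and 2.90. The galectin lgals1l1 reached 414, 852 and 623 TPM in PFOS20, against 92.9, 94.7 and 80.5 TPM in controls. sdr42e2, a short-chain dehydrogenase/reductase family member, had 4.81, 10.9 and 6.84 TPM in PFOS20, against 0.05, 0.15 and 0.10 TPM in controls. In both genes PFOS20 replicate 2 was the lowest exposed library and still several times above controls. Their log2 differences were 2.75 and 2.89.

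Among the 12 genes with the largest decreases were secreted liver and mucosal proteins. ahsg2, a fetuin, had 0.12, 0.09 and 0.10 TPM in PFOS20, against 16.9, 12.2 and 10.9 TPM in controls. Complement factor D, cfd, had 3.80, 8.25 and 9.60 TPM in PFOS20, against 69.3, 69.3 and 72.6 TPM in controls. Intelectin 3, itln3, a carbohydrate-binding secreted lectin, had 1.66, 1.64 and 1.15 TPM in PFOS20, against 13.4, 12.8 and 8.88 TPM in controls. The carboxylesterase ces3 had 1.68, 1.76 and 1.40 TPM in PFOS20, against 17.8, 8.13 and 10.9 TPM in controls. Each of these stayed below its lowest control in all 3 exposed libraries, and the log2 differences were -3.68, -3.20, -2.34 and -2.28. The other decreases were hspa4b (-2.71), an Hsp110-type chaperone gene, pot1 (-2.46), a telomere-end binding protein gene, ice2 (-2.19), a subunit gene of the little elongation complex, and map7d2b (-2.15), a microtubule-associated protein gene. bcl6aa, a transcriptional repressor gene, had a log2 difference of -2.30 and lost its call without control replicate 3 (adjusted p = 0.051). The zinc finger genes znf1141 (-2.37) and znf1154 (-2.61) and the Pim-related kinase gene pimr107 (-3.11) belong to families of near-identical copies, so reads could have been divided among copies and these values are uncertain. The znf1154 call was lost in 5 of the 6 fits without 1 library (adjusted p = 0.12 and 0.12 without PFOS20 replicates 2 and 3 and 0.065, 0.071 and 0.093 without control replicates 2, 3 and 4).

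Most called inflammatory transcripts were higher. Of the cytokine and NF-kB genes, 21 of 58 tested were higher, 5 lower and 32 not called (median log2 change 0.35). Of the 58, 6 passed the filter only through PFOS20 and 2, ccl39.2 among them, only through controls, which set their direction. cxcl8b.1, a chemokine that draws neutrophils, had 29.9, 33.1 and 20.2 TPM in PFOS20, against 4.44, 5.23 and 2.57 TPM in controls. cxcl18b, a chemokine of inflamed fish tissue, had 16.1, 15.5 and 18.5 TPM in PFOS20, against 4.43, 3.13 and 2.15 TPM in controls. Both sets of 3 stood wholly above controls (log2 difference of cxcl8b.1 2.51 ± 0.26 (SE), adjusted p = 0.0034, and log2 difference of cxcl18b 2.09 ± 0.21 (SE), adjusted p = 0.0029). caspb, a caspase that acts in fish inflammasomes, had 63.8, 119 and 98.4 TPM in PFOS20, against 30.8, 34.4 and 32.5 TPM in controls, the highest level among the called members of the list (log2 difference of caspb 1.46 ± 0.22 (SE), adjusted p = 0.0083). Chemokines did not all move one way, since ccl19a.1 was lower at 1.62 ± 0.38 TPM in PFOS20 and 5.51 ± 0.37 TPM in controls. ccl39.2 had 0, 0 and 0 TPM in PFOS20, against 1.01, 2.25 and 1.25 TPM in controls. The NF-kB inhibitor gene nfkbiab had 88.1 ± 5.37 TPM in PFOS20 and 76.9 ± 4.64 TPM in controls and was not called. The cytokine higher count was 12 without PFOS20 replicate 3 and 13 without 1 control, and the lower count 2 to 4 without 1 library.

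In leptin and JAK-STAT signalling, 14 of 38 tested were higher, 3 lower and 21 not called (median log2 change 0.27). The receptor gene il4r.1 had 28.9, 31.3 and 30.2 TPM in PFOS20, against 5.94, 7.32 and 5.27 TPM in controls. The feedback inhibitors that JAK-STAT signalling itself induces were higher as well: socs3b had 34.4, 39.3 and 40.2 TPM in PFOS20, against 12.9, 14.5 and 11.3 TPM in controls. socs3a had 53.5 ± 7.22 TPM in PFOS20 and 22.7 ± 0.67 TPM in controls. cish had 59.7 ± 11.8 TPM in PFOS20 and 22.0 ± 2.05 TPM in controls. Their log2 differences were 1.49, 1.19 and 1.39 (adjusted p = 0.0018, 0.0027 and 0.0043). pim1, another target gene of the pathway, had 62.4 ± 0.56 TPM in PFOS20 and 53.3 ± 2.17 TPM in controls and was not called. In the interferon and antigen presentation list, 7 of 28 tested were higher, 1 lower and 20 not called (median log2 change 0.24). The transcription factors irf1b and stat1b led it: irf1b had 9.31, 7.64 and 9.27 TPM in PFOS20, against 1.5, 2.93 and 2.13 TPM in controls. stat1b had 2.22, 2.88 and 1.41 TPM in PFOS20, against 0.34, 0.14 and 0.10 TPM in controls. stat1b was at the floor of the controls, so its log2 difference of 1.39 understates the fold. The leptin lower count was 5 without PFOS20 replicate 4 and 0 without any other library. The interferon higher count was 4 without PFOS20 replicate 3.

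In prostaglandin synthesis, 6 of 23 tested members were higher and 2 lower (median log2 difference 0.15). The inducible cyclooxygenase gene ptgs2a had 52.4, 47.3 and 51.1 TPM in PFOS20, against 15.7, 16.7 and 15.2 TPM in controls. Its paralog ptgs2b had 41.3, 43.2 and 33.9 TPM in PFOS20, against 13.8, 15.7 and 17.0 TPM in controls. ptgis, prostacyclin synthase, was higher (log2 difference 0.76), whereas cbr1, a carbonyl reductase gene, was lower (log2 difference -0.79). The most abundant member, ptgdsb.1, a lipocalin-type prostaglandin D synthase gene, had 977 ± 154 TPM in PFOS20 and 822 ± 39.1 TPM in controls and was not called. In the prostaglandin synthesis list the higher count was 3 without PFOS20 replicate 3 or control 3, and 10 were higher and 1 lower after rescaling.

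Called innate immune markers were mostly higher. In the neutrophil list, 9 of 25 tested were higher, 2 lower and 14 not called (median log2 change 0.43). Its summed TPM was lower, at 713, 789 and 968 in PFOS20 and 1088, 1075 and 1006 in controls. In the macrophage and microglia list, 11 of 32 tested were higher, 2 lower and 19 not called (median log2 change 0.38). npsn, a neutrophil granule protease gene, had 27.1, 30.8 and 33.1 TPM in PFOS20, against 13.4, 11.7 and 12.2 TPM in controls. srgn, the granule proteoglycan serglycin, had 35.4, 44.5 and 42.5 TPM in PFOS20, against 19.1, 12.9 and 14.1 TPM in controls. The peroxidase gene mpx had 5.20, 6.84 and 8.06 TPM in PFOS20, against 3.29, 2.71 and 2.90 TPM in controls, and its call was lost without PFOS20 replicate 3 (adjusted p = 0.052). lyz, lysozyme, went the other way at 28.5 ± 8.99 TPM in PFOS20 and 63.8 ± 14.8 TPM in controls, a call lost in 3 of the 6 fits (adjusted p = 0.054 without PFOS20 replicate 3 and 0.081 and 0.079 without control replicates 2 and 4). Among macrophage genes, cd83, an activation marker of antigen-presenting cells, had 3.53, 5.38 and 7.21 TPM in PFOS20, against 0.43, 0.51 and 0.72 TPM in controls. apoeb, apolipoprotein E, which microglia make in quantity, had 1085, 1309 and 1194 TPM in PFOS20, against 512, 439.9 and 413 TPM in controls. Lipoprotein lipase, lpl, was higher and the progranulin paralog grn1 lower (log2 differences 1.34 and -0.84). In RNA from whole larvae, more or fewer cells of a type and more or less RNA per cell cannot be told apart, here and in each organ below. The neutrophil higher count was 5 without PFOS20 replicate 3 or control 3. After rescaling 17 macrophage genes were higher and 2 lower. Of 16 lymphoid genes tested, 1 was higher and 3 lower. tox, a thymocyte factor that neurons also use, had 20.9 ± 4.48 TPM in PFOS20 and 46.7 ± 0.56 TPM in controls. The recombinase gene rag1 had 0.39 ± 0.15 TPM in PFOS20 and 1.66 ± 0.18 TPM in controls.

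AP-1 and immediate early genes, transcription factors switched on within minutes of injury or growth factor signals, were higher in more than 1 of every 2 cases: 29 of 56 tested were higher, 2 lower and 25 not called (median log2 change 0.57). fosl1a had 47.8, 50.5 and 39.0 TPM in PFOS20, against 3.34, 4.82 and 3.52 TPM in controls. Its partner genes junba and junbb were more abundant, as junba had 208, 223 and 184 TPM in PFOS20, against 36.2, 37.5 and 28.6 TPM in controls. junbb had 246, 223 and 191 TPM in PFOS20, against 54.5, 49.99 and 43.4 TPM in controls. The CCAAT-binding factor genes cebpb and cebpd were the most abundant of the list, as cebpb had 425, 492 and 383 TPM in PFOS20, against 75.4, 79.6 and 60.3 TPM in controls. cebpd had 523, 634 and 509.9 TPM in PFOS20, against 215, 189 and 183 TPM in controls. In all 5 genes the lowest exposed library held more than any control (adjusted p = 5.9e-04 for junbb and 0.0011 for cebpd). klf11a, a repressor of the Kruppel-like family, was an exception, lower at 19.6 ± 2.43 TPM in PFOS20 and 37.7 ± 3.12 TPM in controls. The higher count ranged from 25 to 30 in the fits without 1 library.

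The wound list, which holds matrix, growth factor and plasminogen activation genes of a healing edge, moved in the same direction: 23 of 52 tested were higher, 3 lower and 26 not called (median log2 change 0.38). hbegfa, a heparin-binding growth factor, had 69.97, 71.1 and 66.8 TPM in PFOS20, against 14.6, 14.4 and 15.2 TPM in controls. thbs1a, thrombospondin 1, had 38.4, 45.8 and 45.3 TPM in PFOS20, against 13.4, 11.47 and 10.03 TPM in controls. fn1b, a fibronectin, had 138 ± 16 TPM in PFOS20 and 60.1 ± 17.0 TPM in controls. s100a10b, a partner of annexin A2 at the cell surface, had 446, 407 and 373 TPM in PFOS20, against 199, 182 and 177 TPM in controls. The exposed libraries exceeded every control by several fold for hbegfa and thbs1a (log2 differences 2.16 and 1.81). Tenascin C, tnc, another matrix gene of healing tissue, was lower instead, at 10.5 ± 1.09 TPM in PFOS20 and 20.5 ± 1.25 TPM in controls. krt17 and serpinb1 were also lower in the deposited values (log2 differences -0.73 and -0.70), and neither was called after rescaling (adjusted p = 0.072 and 0.057). The periostin gene postnb, a matrix gene of fibroblasts and fins, had 299 ± 7.42 TPM in PFOS20 and 277 ± 8.65 TPM in controls and was not called. In the wound list 30 were higher and 1 lower after rescaling.

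Among matrix-degrading enzymes and their inhibitors, 11 of 42 tested were higher, 4 lower and 27 not called (median log2 change 0.04). The gelatinase gene mmp9 had 94.9, 100.4 and 73.2 TPM in PFOS20, against 7.96, 7.81 and 5.65 TPM in controls. The collagenase gene mmp13a had 105, 92.8 and 104 TPM in PFOS20, against 9.18, 10.3 and 5.85 TPM in controls. Both exposed triplets lay about an order of magnitude over controls (log2 difference of mmp9 3.47 ± 0.17 (SE), adjusted p = 4.3e-04, and log2 difference of mmp13a 3.46 ± 0.19 (SE), adjusted p = 5.2e-04). timp2b, an inhibitor of these enzymes, had 43.5, 33.0 and 44.0 TPM in PFOS20, against 7.49, 4.47 and 5.61 TPM in controls. Of the lower members, adam23a, a brain-expressed ADAM protein without protease activity in mammals, had 12.3 ± 3.68 TPM in PFOS20 and 26.4 ± 1.54 TPM in controls. mmp30 had 59.2 ± 10.5 TPM in PFOS20 and 47.3 ± 0.96 TPM in controls and was not called. In the metalloproteinase list the higher count was 7 without PFOS20 replicate 3 and 7 without 1 control, and the lower count was 1 without PFOS20 replicate 2 or 3 and 1 without 1 control. In the coagulation list, 3 of 29 tested were higher and 6 lower (median log2 change -0.01), near the shares of all genes. Tissue factor, f3b, the trigger of clotting, had 25.6, 25.1 and 24.1 TPM in PFOS20, against 9.28, 8.88 and 8.13 TPM in controls. The clot crosslinking subunit gene f13a1b had 11.2 ± 1.20 TPM in PFOS20 and 4.07 ± 0.44 TPM in controls. The fibrinogen genes fga, fgb and fgg, made by hepatocytes, were not called and had log2 differences of 0.19, 0.20 and 0.19. habp2, a plasma protease gene, was lower at 1.35 ± 0.32 TPM in PFOS20 and 5.76 ± 0.12 TPM in controls. The coagulation lower count was 2 and 1 without PFOS20 replicates 2 and 3 and 1 and 2 without controls 2 and 3.

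**Figure D2:**
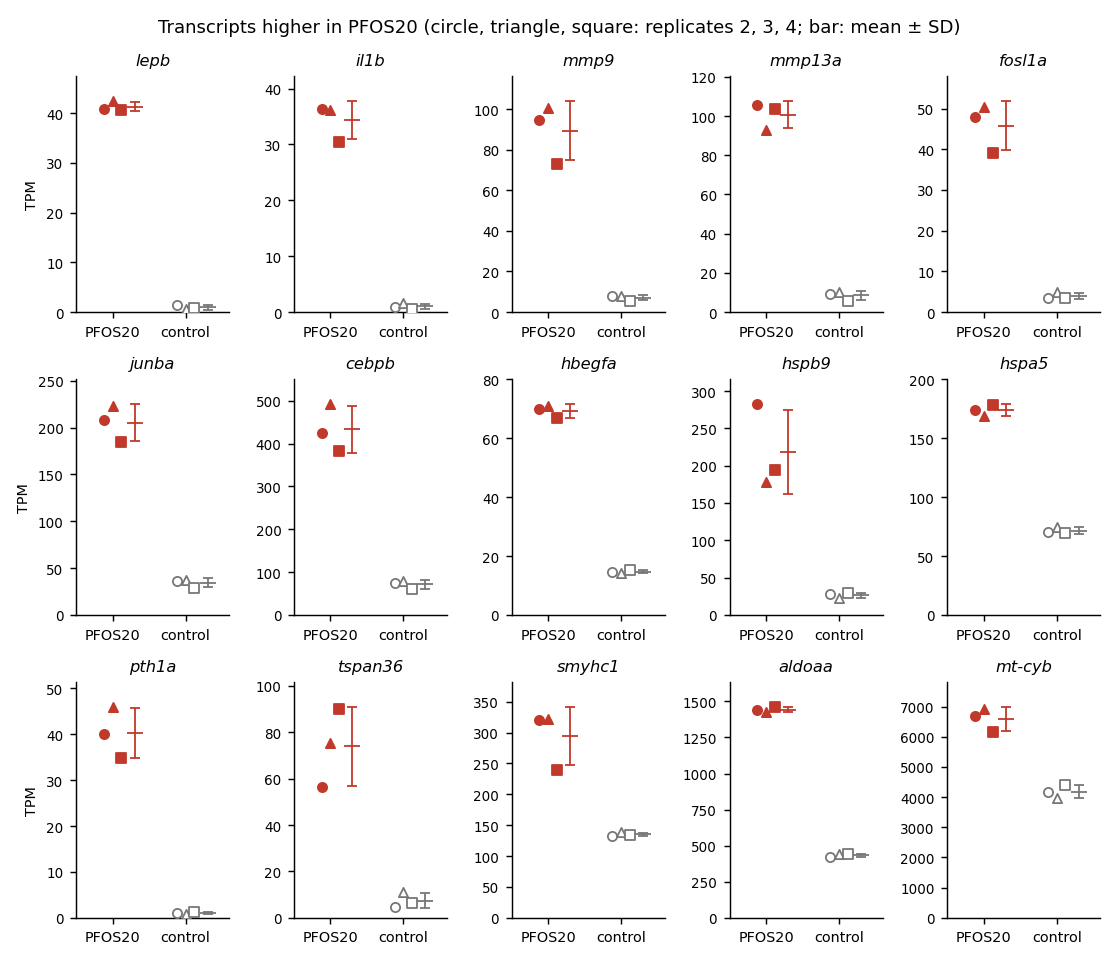
TPM in each library for 15 transcripts that were higher in PFOS20 (left, filled) than in control larvae (right, open), with the mean and SD of 3 libraries at the side and axes starting at 0. No exposed library of any panel reaches down to a control, and lepb and il1b lie near 0 in all controls.

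Keratins, the intermediate filaments of skin cells, fell in most cases, while the pair found in simple epithelia rose: 3 of 22 tested were higher, 12 lower and 7 not called (median log2 change -0.56). Of the abundant epidermal keratin genes, cyt1 had 1415, 1077 and 1199 TPM in PFOS20, against 2364, 2382 and 2368 TPM in controls. krtt1c19e had 892, 760.2 and 828 TPM in PFOS20, against 1624, 1807 and 1789.7 TPM in controls. cyt1l had 606, 403 and 479 TPM in PFOS20, against 1080.3, 1188 and 1014 TPM in controls. Each exposed library held less than any control (log2 difference of cyt1 -0.96 ± 0.10 (SE), adjusted p = 0.0032, and log2 difference of krtt1c19e -1.07 ± 0.08 (SE), adjusted p = 0.0012). By contrast krt8 had 291, 330.1 and 265 TPM in PFOS20, against 173, 158 and 127 TPM in controls, and its partner krt18a.1 had 333, 329 and 329.5 TPM in PFOS20, against 203, 167 and 165 TPM in controls. These 2 filament partners were higher in all 3 exposed libraries (log2 differences 0.95 and 0.89). krt4, an outer-layer keratin, had 211, 132 and 206 TPM in PFOS20, against 868, 471 and 283 TPM in controls, a wide spread among controls. Its log2 difference of -1.44 lost its call in 5 of 6 fits without 1 library (adjusted p = 0.084, 0.12 and 0.069 without PFOS20 replicates 2, 3 and 4 and 0.069 and 0.095 without control replicates 2 and 3) and after rescaling (adjusted p = 0.069). After that scaling 4 keratins were higher and 8 lower. Keratin genes are similar in sequence, so the division of reads among them is uncertain.

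Other skin genes did not follow the keratins. In the epidermis list, 11 of 53 tested were higher, 6 lower and 36 not called (median log2 change 0.06). elf3, an epithelial transcription factor, had 30.3, 30.7 and 31.1 TPM in PFOS20, against 9.74, 10.8 and 10.2 TPM in controls. agr1, a secreted protein gene of the disulfide isomerase family, had 165, 178 and 174 TPM in PFOS20, against 77.6, 72.4 and 82.9 TPM in controls. Both were above all controls (log2 differences 1.5 and 1.14). icn, ictacalcin, an abundant S100 protein gene of the skin, had 1229 ± 148 TPM in PFOS20 and 1298 ± 93.3 TPM in controls and was not called. In the epidermis list the higher count was 7 without PFOS20 replicate 3 and 7 and 6 without controls 2 and 3, and the lower count was 3 and 1 without PFOS20 replicates 2 and 3 and 0 without 1 control. Claudins and tight junction genes, which seal epithelia, were higher more often than lower: 15 of 49 tested were higher, 3 lower and 31 not called (median log2 change 0.25). cldnb had 281, 304 and 278 TPM in PFOS20, against 133, 171 and 124 TPM in controls. cldn23a had 52.8 ± 5.03 TPM in PFOS20 and 29.9 ± 4.96 TPM in controls and cldne had 99.2 ± 6.30 TPM in PFOS20 and 60.0 ± 2.32 TPM in controls. cldnf had the largest difference at 1.13, and this call was lost without PFOS20 replicate 3 (adjusted p = 0.052). In the claudin list the higher count was 6 without PFOS20 replicate 3 and 8 to 9 without 1 control, and the lower count was 0 without PFOS20 replicate 3 and 0 to 1 without 1 control.

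Of the ion-transporting ionocyte genes, 3 of 38 tested were higher, 7 lower and 28 not called (median log2 change -0.02), near the shares of all genes. The sodium pump subunit gene atp1b1a had 284, 329 and 316 TPM in PFOS20, against 220.0, 207 and 195 TPM in controls. fxyd1, a regulator of that pump, had 155 ± 8.89 TPM in PFOS20 and 97.3 ± 0.68 TPM in controls. The proton pump subunit gene atp6v1ab was lower, at 6.18 ± 2.29 TPM in PFOS20 and 17.6 ± 1.34 TPM in controls. So was atp6v1b2, at 9.58 ± 2.15 TPM in PFOS20 and 24.4 ± 2.43 TPM in controls. So was the calcium pump gene atp2b2, at 8.04 ± 3.23 TPM in PFOS20 and 22.3 ± 1.03 TPM in controls, and neurons and hair cells also use these pumps. The ionocyte lower count was 4 without PFOS20 replicate 3 or any control, and 9 were higher and 6 lower after rescaling. Mucosal secretory genes had 3 higher and 1 lower of 14 tested, agr2, which folds mucins, being higher at 94.5 ± 12 TPM in PFOS20 and 52.4 ± 7.83 TPM in controls while itln3 was lower. In the mucosal list the higher count was 1 without PFOS20 replicate 3 or 4 and 1 without control 2 or 4, and 7 were higher and 1 lower after rescaling.

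Most neuronal transcripts were lower, from young neurons and vesicle release to glutamate, GABA, glycine and channel genes. In the young neuron list, 0 of 45 tested were higher, 36 lower and 9 not called (median log2 change -0.98). The tubulin tuba1c, used by growing axons, had 149, 160.4 and 241 TPM in PFOS20, against 532, 552 and 517 TPM in controls. stmn2b, a stathmin of axon growth, had 16.9, 19.4 and 29.5 TPM in PFOS20, against 64.0, 63.6 and 64.6 TPM in controls. ywhag2, a 14-3-3 protein gene, had 30.7, 34.4 and 53.3 TPM in PFOS20, against 101, 104 and 107 TPM in controls. The pan-neuronal RNA-binding protein gene elavl3 had 34.3, 36.6 and 54.3 TPM in PFOS20, against 77.9, 82.3 and 86.0 TPM in controls. In each of these 4 genes PFOS20 replicate 4 was the exposed library nearest to controls, and it still lay below all of them. Their log2 differences were -1.57, -1.54, -1.42 and -0.99 (adjusted p = 0.004, 0.0053, 0.0069 and 0.012).

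Most genes of transmitter release fell: 0 of 52 tested were higher, 37 lower and 15 not called (median log2 change -1.11). stxbp1a, needed for vesicle fusion, had 27.8, 32.7 and 57.6 TPM in PFOS20, against 117, 119.9 and 116 TPM in controls. cplx2l, a complexin, had 29.1, 32.5 and 54.2 TPM in PFOS20, against 117, 129 and 119.5 TPM in controls. The vesicle protein gene sv2a had 11.8, 10.7 and 22.5 TPM in PFOS20, against 44.1, 47.7 and 46.9 TPM in controls. All exposed libraries were below controls. The synucleins differed among themselves: sncgb was lower at 131 ± 48.5 TPM in PFOS20 and 375 ± 12 TPM in controls and sncb at 308 ± 84.6 TPM in PFOS20 and 666 ± 53.7 TPM in controls. sncga had 239 ± 57.2 TPM in PFOS20 and 278 ± 13.1 TPM in controls with overlapping libraries and was not called.

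Receptors and enzymes of both main transmitter types were lower. In glutamate signalling, 0 of 37 tested were higher, 29 lower and 8 not called (median log2 change -1.07). The obligatory NMDA receptor subunit gene grin1a had 11.46, 13.8 and 26.6 TPM in PFOS20, against 55.7, 57.7 and 55.5 TPM in controls. Its paralog grin1b had 35.9 ± 11.1 TPM in PFOS20 and 77.2 ± 2.04 TPM in controls. The AMPA receptor genes gria3b, gria2a and gria3a were lower (log2 differences -1.76, -1.69 and -1.25). In GABA and glycine signalling, 0 of 31 tested were higher, 19 lower and 12 not called (median log2 change -1.02). gad1b, which makes GABA, had 24.2, 27.9 and 51.9 TPM in PFOS20, against 98.2, 99.4 and 94.8 TPM in controls. slc6a1b, which takes it back up, had 20.2, 23.6 and 39.95 TPM in PFOS20, against 78.7, 82.7 and 84.8 TPM in controls. slc32a1, which loads it into vesicles, had 14.6, 16.7 and 29.1 TPM in PFOS20, against 50.3, 51.6 and 52.8 TPM in controls. Of the voltage-gated channel genes, 0 of 57 tested were higher, 33 lower and 24 not called (median log2 change -0.68), led by cacng8a (-1.67) and cacng2b (-1.52), regulators of AMPA receptors, the potassium channel gene kcnc3a (-1.50) and the sodium channel subunit gene scn1bb (-1.48).

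The depth of these decreases differed by library. Medians relative to the control mean were -1.21, -1.11 and -0.59 for young neuron genes, -1.43, -1.23 and -0.58 for vesicle genes and -1.36, -1.15 and -0.63 for glutamate genes in PFOS20 replicates 2, 3 and 4. The same order held for the medians over all genes. After median-of-ratios scaling, which removes it, 36 young neuron, 38 vesicle, 29 glutamate and 19 GABA and glycine genes were lower. Without PFOS20 replicate 3 the lower counts were 22 (young neurons), 23 (vesicle release), 13 (glutamate), 10 (GABA and glycine) and 10 (channels). Lower calls over all genes fell as well, from 4796 to 1698. Without control 3 the list counts were 23, 24, 16, 11 and 12 in that order. Vesicle release had 24 without control 4, and the glutamate and channel counts were 19 and 14 without control 2. The channel count was 18 without PFOS20 replicate 2.

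Progenitor and astroglial genes were lower in part, and myelin genes were mostly not called. Of neural progenitor genes, 0 of 39 tested were higher, 16 lower and 23 not called (median log2 change -0.46). fabp7a, a lipid carrier of radial glia, had 529, 563 and 653 TPM in PFOS20, against 972, 992 and 1049 TPM in controls. insm1a, expressed as progenitors leave the cell cycle, had 15.2 ± 3.69 TPM in PFOS20 and 33.1 ± 2.66 TPM in controls. The stem cell factor sox2 had 31.4 ± 5.15 TPM in PFOS20 and 33.3 ± 0.79 TPM in controls, with overlapping libraries, and was not called. The progenitor lower count was 8 without PFOS20 replicate 3 and 7 to 9 without 1 control. In the astroglia and Muller glia list, 1 of 31 tested was higher, 13 lower and 17 not called (median log2 change -0.29). cspg5a, a proteoglycan of the nervous system, had 33.8 ± 8.66 TPM in PFOS20 and 84.7 ± 2.23 TPM in controls. Glutamine synthetase, glula, had 369.6 ± 66.1 TPM in PFOS20 and 409 ± 21.3 TPM in controls and was not called. The myelin genes mbpa and mbpb were not called either, at 151 ± 4.23 TPM in PFOS20 and 136 ± 5.70 TPM in controls for mbpb and log2 differences of 0.12 and 0.16. In the oligodendrocyte and myelin list, 3 of 27 tested were higher, 3 lower and 21 not called (median log2 change 0.02). Its largest increase, egr2a at 10.2 ± 5.01 TPM in PFOS20 and 1.45 ± 0.11 TPM in controls, is an early growth response gene whose mammalian counterpart acts in Schwann cells, and it is also in the immediate early list. In the astroglia list the lower count was 6 and 5 without PFOS20 replicates 2 and 3 and 5 to 7 without 1 control, and 4 were higher and 9 lower after rescaling. In the myelin list the higher count was 1 without PFOS20 replicate 3 and 1 without 1 control, the lower count was 1 without PFOS20 replicate 2 or 3 and 1 without control 2 or 4, and 9 were higher and 3 lower after rescaling.

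Called monoamine genes were mostly lower. Of monoamine and acetylcholine genes, 2 of 29 tested were higher, 11 lower and 16 not called (median log2 change -0.48). The serotonin receptor gene htr1aa had 1.76 ± 0.61 TPM in PFOS20 and 5.07 ± 0.60 TPM in controls. In this list 2 members passed the filter only through controls. In the monoamine list the lower count was 3 and 2 without PFOS20 replicates 2 and 3 and 1 to 3 without 1 control, and 5 were higher and 9 lower after rescaling. Of neuropeptide genes, 5 of 49 tested were higher, 7 lower and 37 not called (median log2 change -0.31), near the shares of all genes. galn, galanin, had 19.8, 20.3 and 24.9 TPM in PFOS20, against 4.30, 6.28 and 6.67 TPM in controls. pomca, the precursor of corticotropin and melanocyte-stimulating hormone, had 4.64, 12.9 and 14.5 TPM in PFOS20, against 1.32, 0.57 and 1.02 TPM in controls. Both were above all controls (log2 differences 1.76 and 2.46). scg5, a granule chaperone, had 26.4, 24.5 and 32.8 TPM in PFOS20, against 84.2, 86.1 and 87.4 TPM in controls, and cart4, a hypothalamic peptide, was lower (log2 difference -1.35). The adcyap1b transcript, of the peptide PACAP, had 48.5 ± 20.4 TPM in PFOS20 and 82.2 ± 2.29 TPM in controls and was not called. In the neuropeptide list the higher count was 3 without PFOS20 replicate 3 and 3 without control 3 or 4, and the lower count was 14 without PFOS20 replicate 4 and 4 without control 3.

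**Figure D3:**
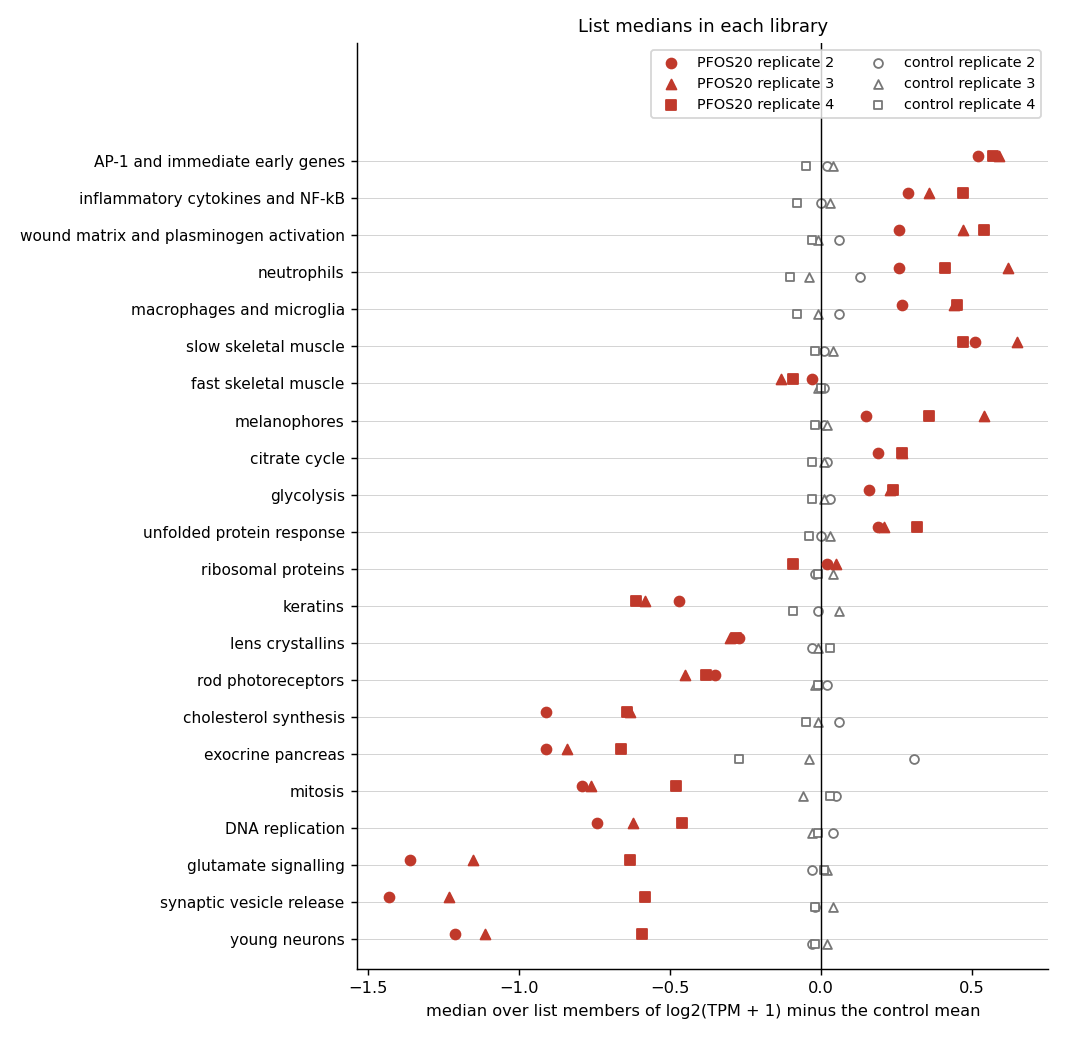
Median over the tested members of 22 gene lists of log2(TPM + 1) minus the control mean, in each of the 6 libraries (filled red, PFOS20; open grey, control; circle, triangle and square for replicates 2, 3 and 4). AP-1 medians lie between 0.52 and 0.59 in all exposed libraries, whereas young neuron medians run from -1.21 to -0.59, with replicate 4 nearest to controls.

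Most called eye transcripts were lower. Of inner retina genes, 0 of 35 tested were higher, 16 lower and 19 not called (median log2 change -0.48). pcp4a, a calmodulin regulator of bipolar and other neurons, had 31.5, 27.1 and 44.9 TPM in PFOS20, against 99.1, 116 and 109.7 TPM in controls. calb2b, calretinin, had 61.9, 82.1 and 101 TPM in PFOS20, against 157, 164 and 159.6 TPM in controls. Of cone genes, 2 of 43 tested were higher, 13 lower and 28 not called (median log2 change -0.41). The cone arrestin arr3b had 191, 254 and 277 TPM in PFOS20, against 390.1, 415 and 449 TPM in controls. The cone phosphodiesterase subunit pde6ha had 1706, 1813 and 2238 TPM in PFOS20, against 3015, 3192 and 3290.1 TPM in controls. The ultraviolet opsin opn1sw1 had 868 ± 138 TPM in PFOS20 and 1305 ± 40.4 TPM in controls. All 3 exposed libraries were below controls for each. Of rod genes, 0 of 27 tested were higher, 11 lower and 16 not called (median log2 change -0.42). rho, rod opsin, had 1198, 905 and 861 TPM in PFOS20, against 1355, 1374 and 1283 TPM in controls. It was lower (log2 difference -0.45), a call lost in 5 of 6 fits without 1 library (adjusted p = 0.12 and 0.084 without PFOS20 replicates 3 and 4 and 0.1, 0.11 and 0.083 without control replicates 2, 3 and 4) and after rescaling (adjusted p = 0.33). rbp3, which shuttles retinoids between photoreceptors and pigment epithelium, had 62.6, 67.2 and 85.1 TPM in PFOS20, against 161, 168 and 171 TPM in controls. rpe65a, the isomerase of the pigment epithelium, had 72.9 ± 22.0 TPM in PFOS20 and 79.9 ± 1.49 TPM in controls and was not called. The inner retina lower count was 9 and 7 without PFOS20 replicates 2 and 3 and 6 to 7 without 1 control. In the cone list the lower count was 8 and 4 without PFOS20 replicates 2 and 3 and 4 to 6 without 1 control, and 4 were higher and 12 lower after rescaling. In the rod list the lower count was 3 without PFOS20 replicate 3 and 3 to 5 without 1 control, and 0 were higher and 6 lower after rescaling.

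In the visual cycle list, 2 of 29 tested were higher, 9 lower and 18 not called (median log2 change -0.45). The retinol dehydrogenase gene rdh12 had 12.8 ± 1.99 TPM in PFOS20 and 25.6 ± 2.10 TPM in controls, while rdh10b, of the same enzyme class, was higher at 9.19 ± 1.38 TPM in PFOS20 and 4.90 ± 0.12 TPM in controls. In the visual cycle list the lower count was 4 without PFOS20 replicate 3 and 3 and 4 without controls 2 and 4, and 4 were higher and 9 lower after rescaling. Lens crystallins, the water-soluble proteins that fill lens fibres, showed small decreases: 0 of 44 tested were higher, 25 lower and 19 not called (median log2 change -0.28). cryaa, the alpha crystallin chaperone, had 24.6, 23.2 and 24.3 TPM in PFOS20, against 46.4, 46.8 and 48.2 TPM in controls (log2 difference of cryaa -0.94 ± 0.08 (SE), adjusted p = 0.002). Of the abundant structural crystallins, crybb1 had 1648 ± 37.3 TPM in PFOS20 and 1822 ± 59.6 TPM in controls and was not called, and cryba4 had 1002 ± 57.8 TPM in PFOS20 and 1179.5 ± 15.7 TPM in controls, a call lost after rescaling (adjusted p = 0.73) and in 4 of 6 fits without 1 library (adjusted p = 0.088 without PFOS20 replicate 3 and 0.08, 0.1 and 0.087 without control replicates 2, 3 and 4). Crystallin copies are close in sequence and reads could be shared between them. In the crystallin list the lower count was 9 without PFOS20 replicate 3 and 11 to 16 without 1 control, and 1 was higher and 7 lower after rescaling. Hair cell and otolith genes had 4 higher and 4 lower of 30, near the shares of all genes. stm, starmaker, an otolith matrix protein, had 76.9, 135 and 129 TPM in PFOS20, against 47.6, 43.2 and 47.8 TPM in controls. otog, otogelin, had 5.10 ± 0.52 TPM in PFOS20 and 2.01 ± 0.47 TPM in controls, while otofa, needed for hair cell release, was lower (log2 difference -1.23). In the hair cell list the higher count was 2 without PFOS20 replicate 3 and 2 without control 3 or 4, and the lower count was 2, 2 and 7 without PFOS20 replicates 2, 3 and 4 and 2 without 1 control.

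Called cell division genes, from DNA replication to mitosis, were lower. In DNA replication, 0 of 66 tested were higher, 43 lower and 23 not called (median log2 change -0.61). pcna, the sliding clamp, had 115, 117 and 134 TPM in PFOS20, against 209, 202 and 210.4 TPM in controls. rrm2, a subunit of the enzyme that makes deoxynucleotides, had 44.5 ± 6.34 TPM in PFOS20 and 75.4 ± 7.70 TPM in controls. nasp, a histone chaperone, had 8.73, 6.89 and 8.38 TPM in PFOS20, against 29.0, 19.7 and 21.9 TPM in controls. In mitosis, 0 of 80 tested were higher, 52 lower and 28 not called (median log2 change -0.70). hmgb2b, a chromatin protein of dividing cells, had 300.4, 277 and 319.6 TPM in PFOS20, against 562, 552 and 528 TPM in controls. The spindle checkpoint gene mad2l1 had 14.3, 12.2 and 16.9 TPM in PFOS20, against 29.3, 29.0 and 31.1 TPM in controls. The condensin gene ncapg had 1.1 ± 0.26 TPM in PFOS20 and 3.46 ± 0.60 TPM in controls. The exposed libraries of all 6 genes lay below controls, and the log2 differences of pcna, hmgb2b and mad2l1 were -0.77, -0.87 and -1.0 (adjusted p = 0.0038, 0.0018 and 0.0059). Of histone genes with poly(A) transcripts, 1 of 16 tested was higher, 7 lower and 8 not called (median log2 change -0.40). h3f3a, a replacement histone, had 515 ± 73.9 TPM in PFOS20 and 851 ± 47.5 TPM in controls. h2afvb had 316 ± 31.3 TPM in PFOS20 and 505 ± 26.1 TPM in controls. h1fx, a linker histone, was the exception at 140.1 ± 14.4 TPM in PFOS20 and 88.6 ± 5.08 TPM in controls. Lower counts of DNA replication and mitosis were 16 and 21 without PFOS20 replicate 3. They were 18 to 22 and 22 to 30 without 1 control, and mitosis had 27 without PFOS20 replicate 2. The histone lower count was 4 without PFOS20 replicate 3 or control 3, and 3 were higher and 7 lower after rescaling.

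Splicing genes were lower far more often than higher. Of splicing factors, 3 of 120 tested were higher, 44 lower and 73 not called (median log2 change -0.35). hnrnpa0a had 34.4, 43.3 and 46.9 TPM in PFOS20, against 103, 98.7 and 88.0 TPM in controls. hnrnpr had 60.0, 58.2 and 74.5 TPM in PFOS20, against 127, 142 and 120.2 TPM in controls. These RNA-binding proteins coat nascent transcripts. hnrnpaba, the most abundant of the list, had 421, 475 and 542 TPM in PFOS20, against 718, 719.8 and 669 TPM in controls (log2 difference of hnrnpaba -0.56 ± 0.10 (SE), adjusted p = 0.012), while hnrnpa0l and srsf5a, nearly as abundant, were not called (log2 differences -0.14 and -0.11). rbm11 was a rare increase, at 3.26 ± 0.22 TPM in PFOS20 and 0.51 ± 0.067 TPM in controls. In the splicing list the higher count was 1 without PFOS20 replicate 3 and 1 without 1 control, the lower count was 29 and 17 without PFOS20 replicates 2 and 3 and 16 to 22 without 1 control, and 5 were higher and 36 lower after rescaling. Of ribosome biogenesis genes, 1 of 91 tested was higher, 14 lower and 76 not called (median log2 change -0.22). The share lower was near that of all genes. heatr1 was lower at 1.47 ± 0.32 TPM in PFOS20 and 3.89 ± 0.42 TPM in controls. In the ribosome biogenesis list the lower count was 4 without PFOS20 replicate 2 or 3 and 3 to 4 without 1 control, and 2 were higher and 7 lower after rescaling. Tubulins, the subunits of microtubules, fell with 10 of 17 lower and 0 higher (median -0.61). tubb2 had 10.3, 8.24 and 16.7 TPM in PFOS20, against 45.6, 39.4 and 42.9 TPM in controls. tuba2 had 28.2, 30.9 and 47.5 TPM in PFOS20, against 110.2, 106 and 120.4 TPM in controls. tubb2b had 182, 184 and 263 TPM in PFOS20, against 518, 540.1 and 514 TPM in controls. Tubulin genes are near-identical over long stretches, so reads could be divided between copies. Of the actin and myosin regulators, 5 of 42 tested were higher, 7 lower and 30 not called (median log2 change -0.03), near the shares of all genes. tagln3b and tmsb2, a neuronal transgelin and a thymosin, were lower (log2 differences -1.99 and -1.60), whereas beta-actin, actb2, had 2618 ± 120.2 TPM in PFOS20 and 2261 ± 182 TPM in controls and was not called. In the actin list the higher count was 2 and 0 without PFOS20 replicates 2 and 3 and 0 to 2 without 1 control, the lower count was 3 without PFOS20 replicate 2 or 3 and 3 without 1 control, and 8 were higher and 6 lower after rescaling.

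**Figure D4:**
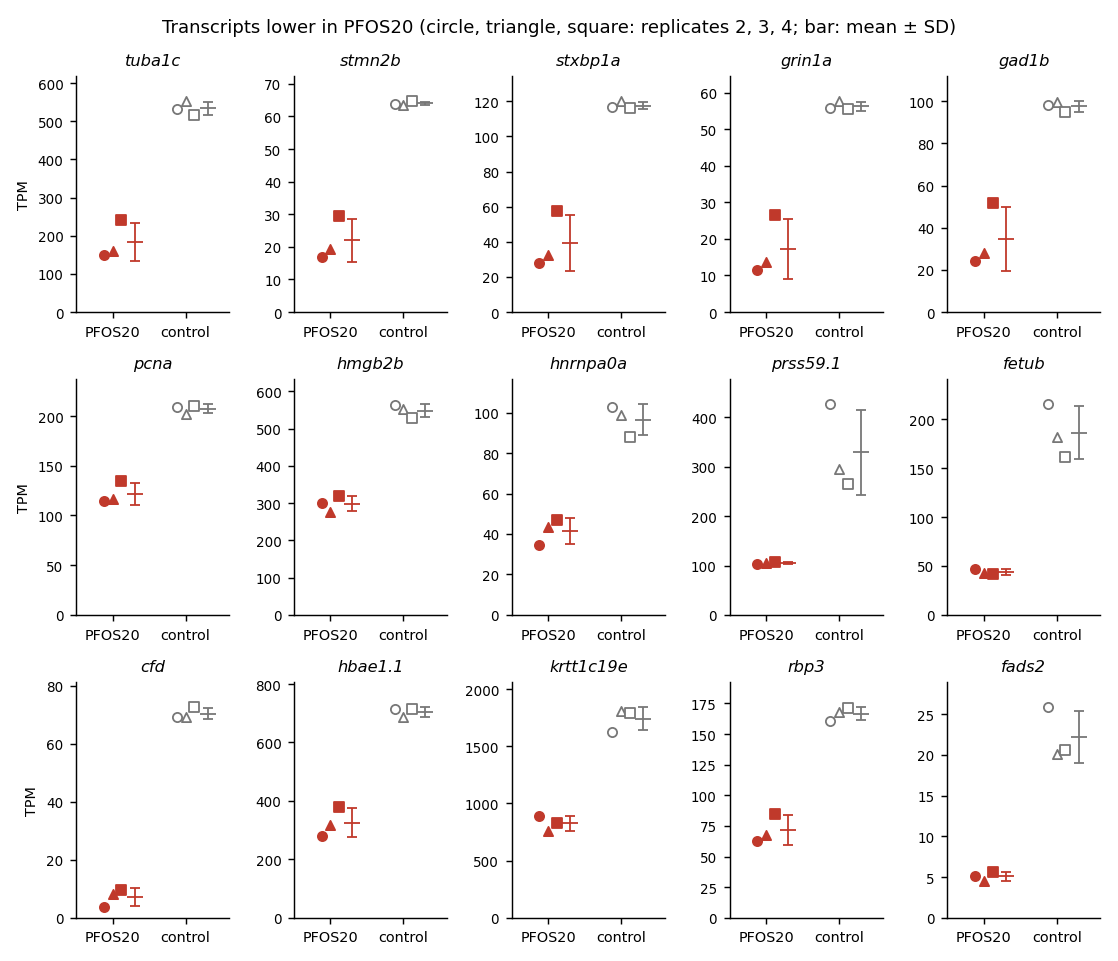
TPM in each library for 15 transcripts that were lower in PFOS20 (left, filled) than in control larvae (right, open), with the mean and SD of 3 libraries at the side and axes starting at 0. In the neuronal genes of the top row the square, PFOS20 replicate 4, is the exposed library nearest to controls, while in prss59.1 and fetub the exposed libraries lie close together and the controls spread.

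Most slow muscle genes were higher. Slow fibres form the superficial sheet of the trunk and work aerobically, while fast fibres make up the bulk of the myotome. In the slow muscle list, 12 of 20 tested were higher, 0 lower and 8 not called (median log2 change 0.60). Slow myosin heavy chain genes led it. smyhc1 had 320.2, 322 and 239.8 TPM in PFOS20, against 133, 138 and 134 TPM in controls. smyhc2 had 184, 185 and 217 TPM in PFOS20, against 57.3, 46.5 and 85.0 TPM in controls. smyhc3 had 189, 190.5 and 181 TPM in PFOS20, against 79.7, 86.0 and 83.7 TPM in controls. Reads of these tandem copies can be hard to assign, but all 3 pointed the same way (log2 difference of smyhc1 1.1 ± 0.12 (SE), adjusted p = 0.004). myl10, a slow fibre light chain, had 917, 932 and 702 TPM in PFOS20, against 396, 402 and 405 TPM in controls. tnnc1b, a slow troponin C, had 422 ± 53.8 TPM in PFOS20 and 265 ± 18.2 TPM in controls. In each of these 5 genes no exposed library came down to a control.

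In the fast muscle list, 9 of 69 tested were higher, 13 lower and 47 not called (median log2 change -0.06), shares (13% higher and 18.8% lower) near those of all tested genes (8.06% and 17.0%). Among the higher members were enzymes of sugar breakdown and protein turnover. pgam2, muscle phosphoglycerate mutase, had 497, 464 and 424 TPM in PFOS20, against 141, 149 and 152 TPM in controls. eno3, muscle enolase, had 1157, 1180.2 and 1052 TPM in PFOS20, against 557, 552 and 509 TPM in controls. trim63a, a muscle ubiquitin ligase of fibre wasting, had 163, 146 and 117 TPM in PFOS20, against 69.2, 52.4 and 60.1 TPM in controls. casq1a, calsequestrin, the calcium store protein of fast fibres, had 51.0, 37.1 and 27.3 TPM in PFOS20, against 146, 112 and 119.7 TPM in controls. ampd1, muscle AMP deaminase, was lower at 125 ± 16.2 TPM in PFOS20 and 216 ± 7.58 TPM in controls, and the fast myosin myhz1.2 at 1664 ± 253 TPM in PFOS20 and 2730.1 ± 161 TPM in controls. The most abundant contractile transcript, actc1b, had 12831 ± 1393 TPM in PFOS20 and 13384 ± 872 TPM in controls. The fast myosin myhz2 had 846 ± 107 TPM in PFOS20 and 1021 ± 41.5 TPM in controls. Neither was called. Parvalbumin pvalb2 was called lower as deposited (log2 difference -0.27) and not after rescaling (adjusted p = 0.66). The pvalb2 call was also lost in 4 of 6 fits without 1 library (adjusted p = 0.054 without PFOS20 replicate 3 and 0.071, 0.078 and 0.074 without control replicates 2, 3 and 4). In the fast muscle list the lower count was 6 without PFOS20 replicate 3 and 5 to 6 without 1 control, and 12 were higher and 4 lower after rescaling. Of myogenic factors, 4 of 30 tested were higher, 2 lower and 24 not called (median log2 change 0.04): myod1 had 18.4, 19.1 and 18.9 TPM in PFOS20, against 6.39, 9.05 and 11.3 TPM in controls. myog had 29.1, 27.0 and 25 TPM in PFOS20, against 12.5, 11.51 and 15.5 TPM in controls. In the myogenic factor list the higher count was 2 without 1 PFOS20 library and 2 without control 3 or 4, and 9 were higher and 1 lower after rescaling.

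Heart genes were called in a few cases, led by natriuretic peptides. In the heart muscle list, 7 of 25 tested were higher, 0 lower and 18 not called (median log2 change 0.22). The natriuretic peptide genes nppa and nppb, secreted by stretched heart muscle, were higher. nppa had 13, 15.8 and 22.0 TPM in PFOS20, against 5.23, 5.02 and 4.13 TPM in controls. nppb had 3.87, 5.58 and 8.84 TPM in PFOS20, against 1.03, 0.60 and 0.27 TPM in controls. Both exposed triplets lay above controls (log2 difference of nppa 1.6 ± 0.20 (SE), adjusted p = 0.0053, and log2 difference of nppb 2.09 ± 0.30 (SE), adjusted p = 0.0076). The heart light chain myl7 had 41.7 ± 12.9 TPM in PFOS20 and 41.2 ± 2.10 TPM in controls, with overlapping libraries. The heart myosin-binding protein mybpc3 had 113 ± 16.1 TPM in PFOS20 and 89.4 ± 1.22 TPM in controls. Neither was called. The heart higher count was 3 without PFOS20 replicate 3 and 3 to 4 without 1 control. Of smooth muscle genes, 4 of 20 tested were higher, 3 lower and 13 not called (median log2 change 0.28), and desma, desmin, which skeletal and heart muscle also make, had 228, 242 and 256 TPM in PFOS20, against 125, 120.1 and 108 TPM in controls. In the smooth muscle list the higher count was 1 and 2 without PFOS20 replicates 3 and 4 and 1 to 2 without 1 control, the lower count was 0 and 1 without PFOS20 replicates 2 and 3 and 0 to 1 without 1 control, and 8 were higher and 2 lower after rescaling.

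Called skeletal and connective tissue genes were mostly higher. Of cartilage genes, 6 of 33 tested were higher, 1 lower and 26 not called (median log2 change 0.20). Of the matrilin genes, matn3b had 97.8, 98.9 and 92.9 TPM in PFOS20, against 35.8, 35.2 and 33.2 TPM in controls. matn1 had 107, 175 and 150.4 TPM in PFOS20, against 73.1, 57.8 and 60.7 TPM in controls. The main cartilage collagen col2a1a had 101 ± 14.4 TPM in PFOS20 and 118 ± 16.4 TPM in controls and was not called. Of bone genes, 3 of 20 tested were higher, 0 lower and 17 not called (median log2 change 0.22), led by col10a1a, a collagen of bone-forming cells in fish. col10a1a had 38.0, 55.8 and 54.5 TPM in PFOS20, against 19.4, 21.4 and 16.6 TPM in controls. Of collagen chains, 7 of 46 tested were higher, 1 lower and 38 not called (median log2 change 0.02): col12a1a had 142 ± 9.91 TPM in PFOS20 and 66.8 ± 8.45 TPM in controls. The type I chain col1a1a had 379 ± 25.1 TPM in PFOS20 and 380.1 ± 23.6 TPM in controls and was not called. Of tendon and fibroblast genes, 11 of 38 tested were higher, 1 lower and 26 not called (median log2 change 0.24). fbln1, fibulin 1, had 33.0 ± 1.18 TPM in PFOS20 and 16.6 ± 1.06 TPM in controls. The gene and2, actinodin 2, a fin fold fibre protein, had 333, 342 and 284 TPM in PFOS20, against 182, 170.3 and 189 TPM in controls. Its paralog and1 had 86.6 ± 8.75 TPM in PFOS20 and 94.2 ± 2.32 TPM in controls and was not called. kera, keratocan, a corneal proteoglycan, was lower at 3.50 ± 0.12 TPM in PFOS20 and 10.6 ± 0.96 TPM in controls. The cartilage higher count was 3 without PFOS20 replicate 3 or any control, and 12 were higher and 1 lower after rescaling. In the collagen list the higher count was 3 without PFOS20 replicate 3 and 3 and 4 without controls 3 and 4, the lower count was 3 without PFOS20 replicate 4, and 15 were higher and 0 lower after rescaling. In the tendon and fibroblast list the higher count was 6 without PFOS20 replicate 3 and 6 to 7 without 1 control, and 17 were higher and 1 lower after rescaling. The bone higher count was 1 without PFOS20 replicate 2 or 3 or control 4, and 6 were higher and 0 lower after rescaling.

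Of notochord genes, 5 of 18 tested were higher, 1 lower and 12 not called (median log2 change 0.28), with ntd5 at 29.0 ± 2.32 TPM in PFOS20 and 12.6 ± 0.77 TPM in controls. Of basement membrane genes, 3 of 35 tested were higher, 0 lower and 32 not called (median log2 change 0.11). sparc, a collagen-binding matrix protein and the most abundant of these, had 679 ± 22.2 TPM in PFOS20 and 635 ± 19.9 TPM in controls and was not called. In the notochord list the higher count was 2 and 3 without PFOS20 replicates 3 and 4 and 2 without 1 control, and 9 were higher and 0 lower after rescaling. The basement membrane higher count was 1 without PFOS20 replicate 3 or control 3 or 4, and 11 were higher and 0 lower after rescaling.

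**Figure D5:**
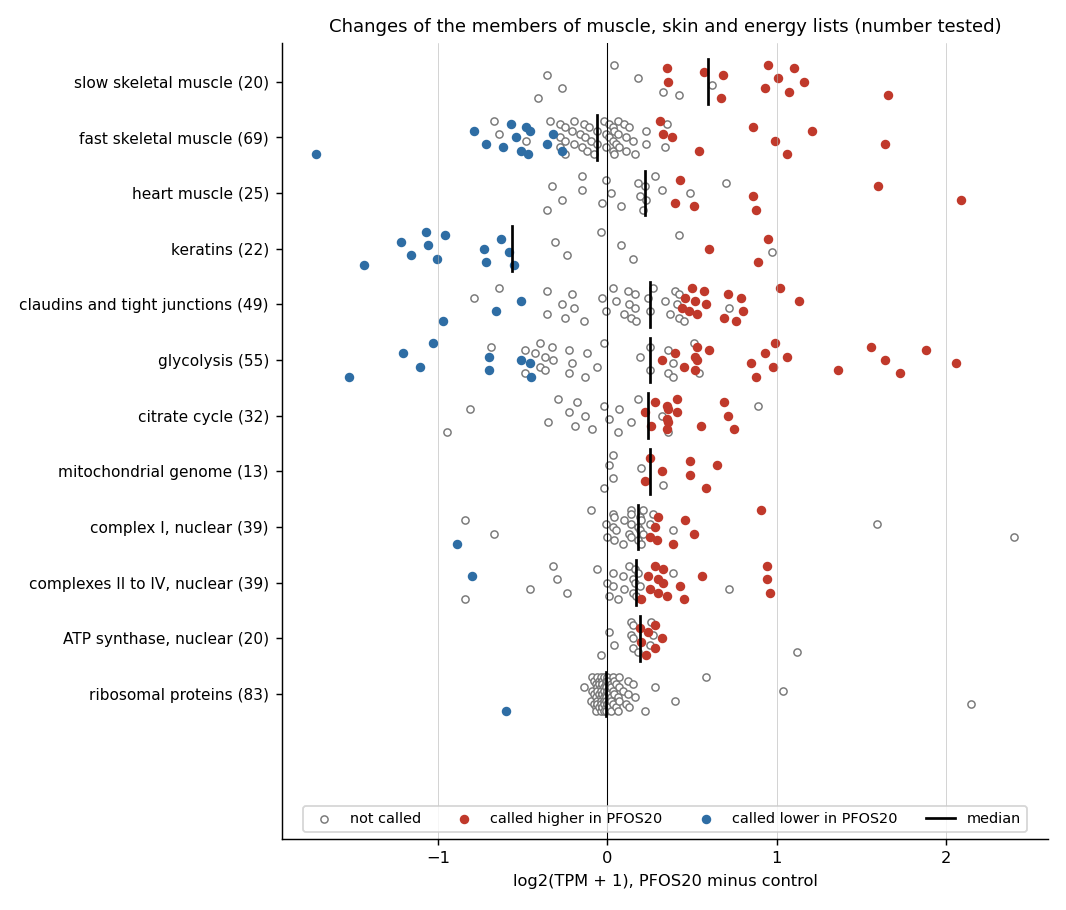
Difference in log2(TPM + 1), PFOS20 minus control, of each tested member of 12 lists of muscle, skin, barrier, energy and ribosomal genes (red, called higher; blue, called lower; open, not called; black bar, median). Slow muscle members lie to the right with a median of 0.60, fast muscle members around a median of -0.06, keratins on both sides with a median of -0.56, and most ribosomal proteins in a narrow band around -0.01.

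In the hepatocyte list, 10 of 75 tested were higher, 26 lower and 39 not called (median log2 change -0.33). fetub, fetuin B, a secreted protease inhibitor, had 47.3, 42.6 and 41.6 TPM in PFOS20, against 215, 182 and 161 TPM in controls. The transferrin gene tfa, which carries iron in plasma, had 203, 183 and 190.4 TPM in PFOS20, against 555, 526 and 479.6 TPM in controls. apoa2, an apolipoprotein among the most abundant transcripts of the list, had 2218, 2331 and 2426 TPM in PFOS20, against 3764, 3459 and 3107 TPM in controls. By contrast igfbp1a, an insulin-like growth factor binding protein of stressed liver, had 144, 148 and 135 TPM in PFOS20, against 65.8, 55.6 and 55.0 TPM in controls. gnmt, which uses up excess S-adenosylmethionine, had 31.3, 42.5 and 36.5 TPM in PFOS20, against 14.2, 14.5 and 15.4 TPM in controls. rbp4, the plasma retinol carrier, was slightly higher at 1592 ± 18.5 TPM in PFOS20 and 1259 ± 9.98 TPM in controls (log2 difference of rbp4 0.34 ± 0.05 (SE), adjusted p = 0.0062). The liver fatty acid binding protein fabp10a, often used as a liver marker, had 1141, 1020.0 and 900.5 TPM in PFOS20, against 1531, 1499.6 and 1233 TPM in controls. Its call was lost after rescaling (adjusted p = 0.24) and in 4 of 6 fits without 1 library (adjusted p = 0.082 and 0.055 without PFOS20 replicates 3 and 4 and 0.085 and 0.087 without control replicates 2 and 3). The hepatocyte lower count was 16 without PFOS20 replicate 3 and 15 without control 2 or 3.

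Of complement and acute phase genes, 5 of 34 tested were higher, 11 lower and 18 not called (median log2 change -0.31). c9, the pore-forming last component, had 24.6, 28.7 and 25.6 TPM in PFOS20, against 59.8, 65.0 and 56.0 TPM in controls. hp, haptoglobin, had 34.2 ± 1.92 TPM in PFOS20 and 57.7 ± 5.10 TPM in controls. Higher members were ptx3a, a pentraxin, at 17.6 ± 1.83 TPM in PFOS20 and 7.54 ± 0.42 TPM in controls, and hamp, hepcidin, the iron-regulating peptide, at 89.9, 108 and 84.5 TPM in PFOS20, against 60.0, 52.3 and 53.5 TPM in controls. In the complement list the higher count was 2 without PFOS20 replicate 3 or 4 and 3 without 1 control, the lower count was 6 and 5 without PFOS20 replicates 2 and 3 and 6 and 4 without controls 2 and 3, and 8 were higher and 9 lower after rescaling. Of apolipoprotein and lipoprotein genes, 9 of 36 tested were higher, 7 lower and 20 not called (median log2 change -0.05). Endothelial lipase, lipg, had 52.5, 57.0 and 38.6 TPM in PFOS20, against 16.8, 18.5 and 17.7 TPM in controls. The lipoprotein receptor gene vldlr was lower, as it had 12.5 ± 1.63 TPM in PFOS20 and 24.9 ± 0.21 TPM in controls. apoda.2, an apolipoprotein D, had 50.003 ± 3.37 TPM in PFOS20 and 107 ± 22.0 TPM in controls. apoa1b, the most abundant, had 2680.4 ± 234 TPM in PFOS20 and 3275 ± 480.4 TPM in controls, with overlapping libraries. The apolipoprotein lower count was 4 without PFOS20 replicate 2 or 3, and 13 were higher and 4 lower after rescaling.

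Genes of the exocrine pancreas, which makes digestive enzymes in its acinar cells, were lower in all called cases: 0 of 23 tested were higher, 14 lower and 9 not called (median log2 change -0.83). The trypsin gene prss59.1 had 104, 106 and 108 TPM in PFOS20, against 426, 295 and 265 TPM in controls. The amylase gene amy2a had 23.0, 30.5 and 34.3 TPM in PFOS20, against 125, 78.9 and 66.9 TPM in controls. The carboxypeptidase gene cpa1 had 5.63, 4.49 and 2.71 TPM in PFOS20, against 17.9, 12.7 and 14.3 TPM in controls. For prss59.1 the exposed libraries lay close together, below controls that differed from each other (log2 difference of prss59.1 -1.60 ± 0.17 (SE), adjusted p = 0.0035). prss1 was lower at 344 ± 8.19 TPM in PFOS20 and 619.5 ± 115 TPM in controls. ctrb1, chymotrypsinogen, had 256 ± 21.2 TPM in PFOS20 and 360.4 ± 87.6 TPM in controls and was not called. Trypsin copies are close in sequence, and reads could be shared. The exocrine pancreas lower count was 9 without PFOS20 replicate 2 or 3. In the endocrine pancreas and enteroendocrine list, 5 of 29 tested were higher, 8 lower and 16 not called (median log2 change -0.14). Both glucagon genes were higher. gcga had 23.8, 15.8 and 24.9 TPM in PFOS20, against 9.22, 7.66 and 5.42 TPM in controls. gcgb had 16.9, 17.8 and 17.8 TPM in PFOS20, against 5.91, 4.46 and 8.17 TPM in controls. Insulin, ins, had 22.4, 18.1 and 25.5 TPM in PFOS20, against 38.5, 29.2 and 25.9 TPM in controls, not called though all exposed libraries lay below controls. The endocrine lower count was 3 and 2 without PFOS20 replicates 2 and 3 and 2 to 3 without 1 control.

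In the enterocyte list, 2 of 58 tested were higher, 9 lower and 47 not called (median log2 change -0.21). The share lower was near that of all genes. rbp2a, the intestinal retinol binding protein, had 384, 312 and 296 TPM in PFOS20, against 662, 546 and 530.2 TPM in controls. The amino acid transporter slc6a19b had 4.62 ± 0.91 TPM in PFOS20 and 9.85 ± 1.56 TPM in controls. soat2, which esterifies cholesterol in gut and liver, was higher at 3.57 ± 0.59 TPM in PFOS20 and 1.36 ± 0.25 TPM in controls. fabp1b.1 and fabp6, the most abundant lipid and bile acid carriers of the gut, were not called (log2 differences 0.43 and 0.15), nor was fabp2 (-0.05). In the enterocyte list the lower count was 5 and 4 without PFOS20 replicates 2 and 3 and 2 to 4 without 1 control, and 4 were higher and 3 lower after rescaling. Of kidney tubule genes, 3 of 35 tested were higher (8.57%) and 8 lower (22.9%), with a median log2 change of -0.21. slc12a3, a salt transporter, had 12.8 ± 1.61 TPM in PFOS20 and 7.17 ± 0.22 TPM in controls. pax2a, a kidney and midbrain factor, had 6.33 ± 0.99 TPM in PFOS20 and 13 ± 0.28 TPM in controls. The kidney tubule higher count was 1 without PFOS20 replicate 3 or any control. The lower count was 5 and 2 without PFOS20 replicates 2 and 3 and 1 without 1 control. After rescaling 5 were higher and 6 lower. Of pituitary hormone genes, 4 of 10 tested were higher, 0 lower and 6 not called (median log2 change 0.43). pomca, given above, led them. gh1, growth hormone, had 4.31, 10.6 and 12.5 TPM in PFOS20, against 3.24, 1.73 and 2.01 TPM in controls, and this call was lost in 4 of 6 fits without 1 library (adjusted p = 0.092 and 0.06 without PFOS20 replicates 3 and 4 and 0.084 and 0.079 without control replicates 3 and 4). The pituitary higher count was 2 without PFOS20 replicate 3 or control 3 or 4.

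Most sterol synthesis genes fell. In cholesterol synthesis, 0 of 30 tested were higher, 21 lower and 9 not called (median log2 change -0.73). sc5d, a late desaturase of the pathway, had 3.54, 3.37 and 4.02 TPM in PFOS20, against 12.3, 10.3 and 11.2 TPM in controls. msmo1, a methyl sterol oxidase, had 16.8, 25.2 and 14.5 TPM in PFOS20, against 42.9, 36.1 and 40.2 TPM in controls. hmgcs1, at the entry to the pathway, had 20.5, 29.0 and 27.5 TPM in PFOS20, against 47.2, 44.9 and 44.0 TPM in controls. The exposed libraries were below controls in each (log2 difference of sc5d -1.40 ± 0.13 (SE), adjusted p = 0.0022, and log2 difference of hmgcs1 -0.81 ± 0.14 (SE), adjusted p = 0.011). The cholesterol synthesis lower count was 13 without control 2, and 3 were higher and 21 lower after rescaling. In fatty acid synthesis and elongation, 5 of 34 tested were higher, 12 lower and 17 not called (median log2 change -0.28). fads2, the desaturase that makes long-chain polyunsaturated fatty acids, had 5.12, 4.52 and 5.62 TPM in PFOS20, against 25.9, 20.1 and 20.6 TPM in controls. elovl2, which elongates them, had 2.94, 3.81 and 3.64 TPM in PFOS20, against 13.1, 8.26 and 10.6 TPM in controls. acacb, an acetyl-CoA carboxylase gene, was higher at 33.0 ± 2.42 TPM in PFOS20 and 20.8 ± 0.81 TPM in controls. In the fatty acid synthesis list the higher count was 3 and 1 without PFOS20 replicates 2 and 3 and 1 without 1 control, the lower count was 4 without PFOS20 replicate 3 and 6 without 1 control, and 8 were higher and 10 lower after rescaling. In fatty acid oxidation and PPAR targets, 16 of 60 tested were higher, 7 lower and 37 not called (median log2 change 0.10). ucp3, a mitochondrial uncoupling protein of muscle, had 169, 176 and 128 TPM in PFOS20, against 69.7, 68.4 and 60.1 TPM in controls. pdk4, which diverts pyruvate from oxidation, had 32.7 ± 3.49 TPM in PFOS20 and 15.9 ± 2.17 TPM in controls. angptl4, an inhibitor of lipoprotein lipase, had 135, 158 and 151 TPM in PFOS20, against 84.7, 78.9 and 68.7 TPM in controls. fabp3, the muscle fatty acid binding protein, had 754 ± 23.4 TPM in PFOS20 and 491 ± 9.40 TPM in controls. ehhadh, a peroxisomal oxidation enzyme, was lower at 4.50 ± 0.15 TPM in PFOS20 and 8.30 ± 0.56 TPM in controls. In the fatty acid oxidation list the higher count was 8 without PFOS20 replicate 3 and 8 and 9 without controls 3 and 4, the lower count was 4 and 1 without PFOS20 replicates 2 and 3 and 1 to 2 without 1 control, and 23 were higher and 3 lower after rescaling.

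In glycolysis, 20 of 55 tested were higher, 9 lower and 26 not called (median log2 change 0.25). Among the higher genes, aldoaa, aldolase A, had 1443, 1424 and 1459 TPM in PFOS20, against 419, 441 and 439 TPM in controls. gapdh had 2700.5, 2696 and 2443 TPM in PFOS20, against 1529, 1488 and 1338 TPM in controls. hk2, hexokinase 2, had 9.03, 11.9 and 14.7 TPM in PFOS20, against 2.50, 2.32 and 2.48 TPM in controls. slc2a3b, a glucose transporter, had 10.8, 12.3 and 11.2 TPM in PFOS20, against 2.02, 1.99 and 1.92 TPM in controls. Among the lower genes, pklr, liver pyruvate kinase, had 32.1, 30.4 and 26.5 TPM in PFOS20, against 84.3, 71.7 and 55.3 TPM in controls. aldoca, a brain aldolase, had 0.90 ± 0.31 TPM in PFOS20 and 3.10 ± 0.75 TPM in controls. eno2, neuronal enolase, had 17.1, 18.4 and 39.3 TPM in PFOS20, against 69.4, 69.1 and 67.4 TPM in controls. The eno2 call was lost without PFOS20 replicate 3 (adjusted p = 0.053), and the count of higher members was 15 to 19 in the fits without 1 library. In the hypoxia response list, 12 of 40 tested were higher, 2 lower and 26 not called (median log2 change 0.32). igfbp1b had 65.7, 74.9 and 61 TPM in PFOS20, against 17.8, 17.9 and 14.1 TPM in controls. adma, adrenomedullin, a vessel-widening peptide, had 26.7, 32.5 and 32.0 TPM in PFOS20, against 8.11, 8.27 and 6.93 TPM in controls. ldha, lactate dehydrogenase, had 263 ± 28.7 TPM in PFOS20 and 183 ± 1.18 TPM in controls. In the glycolysis list the lower count was 3 and 14 without PFOS20 replicates 3 and 4 and 4 and 5 without controls 2 and 3.

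Called genes of the citrate cycle and of mitochondrial respiration were nearly all higher. In the citrate cycle, 14 of 32 tested were higher, 0 lower and 18 not called (median log2 change 0.24). idh3b, an isocitrate dehydrogenase subunit, had 80.2, 74.5 and 88.3 TPM in PFOS20, against 45.8, 51.1 and 46.1 TPM in controls. pdha1a, which feeds pyruvate into the cycle, had 150.3, 159 and 156 TPM in PFOS20, against 100.2, 81.8 and 102 TPM in controls. Of 13 protein-coding genes of the mitochondrial genome, 7 were higher and 0 lower (median 0.25). mt-cyb had 6677, 6924 and 6159 TPM in PFOS20, against 4178, 3971 and 4400.4 TPM in controls. mt-co2 had 20326, 21496 and 19536 TPM in PFOS20, against 14254, 14053 and 15336 TPM in controls. Both were higher in all 3 exposed libraries (log2 differences 0.65 and 0.49). mt-atp6 and mt-co3 were called as deposited and not after quantile normalisation (adjusted p = 0.14 and 0.44), where 3 of the genes were higher. Of nuclear complex I genes 8 of 39 were higher, of complexes II to IV 15 of 39, and of ATP synthase 7 of 20, with 1 lower in each of the complex I and II to IV lists. cycsb, a cytochrome c, had 1177, 1347 and 1213 TPM in PFOS20, against 599, 653 and 665 TPM in controls and differed most among the abundant members (log2 difference of cycsb 0.96 ± 0.07 (SE), adjusted p = 0.0014), while cox6c and cox7c were not called (0.03 and 0.09). The citrate cycle higher count was 4 without PFOS20 replicate 3 and 4 to 7 without 1 control. In the complex I list the higher count was 5 and 1 without PFOS20 replicates 2 and 3 and 1 to 3 without 1 control, and 16 were higher and 1 lower after rescaling. In the complex II to IV list the higher count was 8 and 5 without PFOS20 replicates 2 and 3 and 5 to 9 without 1 control, and the lower count was 3 without PFOS20 replicate 4. The ATP synthase higher count was 1 and 0 without PFOS20 replicates 2 and 3 and 0 to 1 without 1 control.

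In the heat shock list, 23 of 102 tested were higher, 12 lower and 67 not called (median log2 change 0.08). The small heat shock protein hspb9 had 282, 178 and 194 TPM in PFOS20, against 27.5, 22.6 and 29.2 TPM in controls. The inducible hsp70l had 35.8, 27.5 and 37.9 TPM in PFOS20, against 6.73, 5.55 and 6.13 TPM in controls. hsp70.2 had 63.5, 46.9 and 50.5 TPM in PFOS20, against 9.78, 15.2 and 7.90 TPM in controls, though hsp70 copies are near-identical and their shares of reads uncertain. The abundant cytosolic chaperone hsp90ab1 had 1125 ± 36.4 TPM in PFOS20 and 1268 ± 132 TPM in controls and was not called. hspa4b, given above, was lower. dnajc5aa, a co-chaperone of synaptic vesicles, was lower at 10.4 ± 3.95 TPM in PFOS20 and 28.6 ± 4.31 TPM in controls. In the unfolded protein response list, 10 of 46 tested were higher, 0 lower and 36 not called (median log2 change 0.26). hspa5, the main chaperone of the endoplasmic reticulum, had 174, 169 and 179 TPM in PFOS20, against 70.4, 75.0 and 69.2 TPM in controls. dnajb9b had 17.8, 18.8 and 16.9 TPM in PFOS20, against 5.33, 3.67 and 4.31 TPM in controls. hyou1 had 27.8 ± 1.70 TPM in PFOS20 and 16.3 ± 0.83 TPM in controls. In the integrated stress list, 15 of 50 tested were higher, 3 lower and 32 not called (median log2 change 0.11). atf3 had 33.1, 35.1 and 31.7 TPM in PFOS20, against 5.77, 6.32 and 5.37 TPM in controls. jdp2b had 33.5, 21.3 and 17.8 TPM in PFOS20, against 5.49, 6.15 and 5.50 TPM in controls. chac1, a glutathione-degrading target of ATF4, had 421 ± 76.0 TPM in PFOS20 and 344 ± 19.2 TPM in controls and was not called. In the heat shock list the higher count was 13 without PFOS20 replicate 3 and 14 to 15 without 1 control, the lower count was 6, 6 and 19 without PFOS20 replicates 2, 3 and 4 and 5 without 1 control, and 36 were higher and 10 lower after rescaling. In the unfolded protein response list the higher count was 4 without PFOS20 replicate 3 and 3 to 4 without 1 control, and 25 were higher and 0 lower after rescaling. In the integrated stress list the higher count was 8 without PFOS20 replicate 3 and 9 without control 4, and the lower count was 1, 1 and 5 without PFOS20 replicates 2, 3 and 4 and 1 without control 3.

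Of p53 target and apoptosis genes, 16 of 59 tested were higher, 6 lower and 37 not called (median log2 change 0.18). The growth arrest genes of the gadd45 family were the leading increases. gadd45bb had 40.5, 37.9 and 27.2 TPM in PFOS20, against 7.31, 7.66 and 7.29 TPM in controls. gadd45ab had 58.8, 69.8 and 52.5 TPM in PFOS20, against 21.9, 20.1 and 19.7 TPM in controls. gadd45aa had 33.2 ± 2.99 TPM in PFOS20 and 11.7 ± 0.34 TPM in controls. mcl1b, an inhibitor of cell death, had 163, 189 and 165 TPM in PFOS20, against 91.3, 80.8 and 84.9 TPM in controls. ccng1, a common p53 target, had 335 ± 27.7 TPM in PFOS20 and 294 ± 32.1 TPM in controls and was not called. In the p53 list the lower count was 2 and 1 without PFOS20 replicates 2 and 3 and 0 to 1 without 1 control, and 27 were higher and 5 lower after rescaling. In the antioxidant and Nrf2 list, 16 of 65 tested were higher, 9 lower and 40 not called (median log2 change 0.14). txn, thioredoxin, had 164, 282 and 205 TPM in PFOS20, against 60.2, 78.2 and 60.1 TPM in controls. fthl27, a ferritin subunit, had 744, 711 and 878 TPM in PFOS20, against 242, 254 and 232 TPM in controls. ucp2, an uncoupling protein, had 606, 737 and 591 TPM in PFOS20, against 367, 361 and 341 TPM in controls. gpx9 was lower at 4.52 ± 0.47 TPM in PFOS20 and 11.8 ± 1.63 TPM in controls. fth1a, another ferritin subunit, had a log2 difference of -0.34 as deposited, a call not made after rescaling (adjusted p = 0.22). In the antioxidant list the higher count was 9 without PFOS20 replicate 3, the lower count was 3 without PFOS20 replicate 3 and 5 without control 2 or 3, and 25 were higher and 6 lower after rescaling.

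Of glutathione transferases, 5 of 21 tested were higher, 4 lower and 12 not called (median log2 change 0.09). gsta.2 had 389, 429 and 399.7 TPM in PFOS20, against 113, 149 and 157 TPM in controls. gstp2 had 116, 97.7 and 168 TPM in PFOS20, against 44.9, 52.8 and 43.8 TPM in controls. gstp1, the most abundant, had 738 ± 17.1 TPM in PFOS20 and 504 ± 28.1 TPM in controls. gstm.1 was lower at 24.6 ± 3.61 TPM in PFOS20 and 57.2 ± 6.35 TPM in controls. Of aryl hydrocarbon receptor targets, 7 of 21 tested were higher, 0 lower and 14 not called (median log2 change 0.19). cyp1c2 had 7.10, 8.25 and 9.03 TPM in PFOS20, against 2.01, 1.6 and 1.39 TPM in controls. cyp1a had 68.5, 82.2 and 79.0 TPM in PFOS20, against 54.2, 41.3 and 37.4 TPM in controls. Its call was lost without PFOS20 replicate 3 (adjusted p = 0.058) and without control replicate 3 (adjusted p = 0.053). Of cytochrome P450 families 2 to 4, 4 of 35 were higher and 5 lower (median log2 change 0.20), near the shares of all genes. cyp2ad2 had 6.46, 7.84 and 6.47 TPM in PFOS20, against 39.0, 28.5 and 28.1 TPM in controls. cyp4v8 had 6.07 ± 1.15 TPM in PFOS20 and 15.8 ± 1.51 TPM in controls. Of glucuronosyl and sulfotransferases, 7 of 41 tested were higher, 5 lower and 29 not called (median log2 change 0.10). ugt2b5 had 32.2 ± 7.5 TPM in PFOS20 and 14.3 ± 1.41 TPM in controls. sult3st2 had 7.51, 7.52 and 7.54 TPM in PFOS20, against 40.9, 29.5 and 25.1 TPM in controls. Of ABC transporters, 6 of 38 tested were higher, 2 lower and 30 not called (median log2 change 0.01), with abca1a, a cholesterol exporter, at 34.2 ± 3.58 TPM in PFOS20 and 19.4 ± 1.23 TPM in controls. The glutathione transferase lower count was 1 without PFOS20 replicate 2 or 3 or any control, and 6 were higher and 2 lower after rescaling. In the cytochrome P450 list the higher count was 2 without PFOS20 replicate 2 or 3 and 0 and 1 without controls 3 and 4, the lower count was 2 without control 2 or 3, and 9 were higher and 4 lower after rescaling. In the conjugation list the higher count was 3 to 4 without 1 PFOS20 library and 2 to 3 without 1 control, the lower count was 3 without PFOS20 replicate 2 or 3 and 3 without control 3, and 11 were higher and 4 lower after rescaling. The ABC transporter higher count was 3 without PFOS20 replicate 3 or any control, and the lower count 6 without PFOS20 replicate 4.

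Called red cell genes were mostly lower. In the red cell and globin list, 1 of 32 tested was higher, 12 lower and 19 not called (median log2 change -0.27). Of the embryonic globin genes, hbae1.1 had 279, 319 and 379 TPM in PFOS20, against 715, 686 and 713 TPM in controls. hbbe1.1 had 874, 745 and 966 TPM in PFOS20, against 1506, 1360.2 and 1433 TPM in controls. slc4a1a, the band 3 anion exchanger of the red cell membrane, had 4.61, 5.76 and 6.85 TPM in PFOS20, against 16, 10.9 and 14.3 TPM in controls. tal1, a blood progenitor factor, had 5.58 ± 1.16 TPM in PFOS20 and 12 ± 1.56 TPM in controls. hbae5 was the exception, at 7.68 ± 2.65 TPM in PFOS20 and 2.31 ± 0.67 TPM in controls. Globin copies are alike, so the share of each is uncertain. The iron and haem list, which shares tfa and fthl27 with lists above, had 4 higher and 7 lower of 42, near the shares of all genes. In the red cell list the lower count was 7 without PFOS20 replicate 3 and 7 without control 2 or 3, and 4 were higher and 10 lower after rescaling. In the iron list the higher count was 2 without PFOS20 replicate 3 and 2 without control 2 or 4, the lower count was 4, 3 and 11 without PFOS20 replicates 2, 3 and 4 and 4 without control 2 or 3, and 9 were higher and 4 lower after rescaling.

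Vessel genes that were called were mostly higher: 12 of 53 tested were higher, 3 lower and 38 not called (median log2 change 0.22). lyve1a had 23.9, 26.1 and 20.1 TPM in PFOS20, against 5.82, 4.55 and 5.84 TPM in controls. stab2, a scavenger receptor of veins, had 10.7, 10.1 and 10.1 TPM in PFOS20, against 2.70, 2.96 and 2.92 TPM in controls. sele, E-selectin, which captures leukocytes on inflamed vessels, had 2.93, 3.46 and 3.16 TPM in PFOS20, against 0.71, 0.60 and 0.65 TPM in controls. aqp1a.1, a water channel, had 85.1, 92.9 and 89.7 TPM in PFOS20, against 43.6, 45.0 and 45.4 TPM in controls. plvapb, of fenestrated vessels, had 56.1 ± 5.51 TPM in PFOS20 and 26.2 ± 1.13 TPM in controls. The receptor gene kdrl, a general vessel marker, had 7.29 ± 0.69 TPM in PFOS20 and 5.43 ± 0.45 TPM in controls and was not called. tal2 was lower (log2 difference -1.41), a call lost without PFOS20 replicate 3 (adjusted p = 0.053). In the endothelial list the higher count was 7 without PFOS20 replicate 3, the lower count was 0 without PFOS20 replicate 3 and 1 without control 2, and 21 were higher and 3 lower after rescaling. Of melanophore genes, 7 of 21 tested were higher, 0 lower and 14 not called (median log2 change 0.42). tspan36, a pigment cell tetraspanin, had 56.4, 75.3 and 90.0 TPM in PFOS20, against 4.77, 11 and 6.59 TPM in controls. The master factor mitfa, past the filter only through PFOS20, had 2.12, 2.53 and 2.66 TPM in PFOS20, against 0.69, 0.92 and 0.83 in controls. pmela, the fibril protein of melanosomes, had 57.6, 63.2 and 67.5 TPM in PFOS20, against 35.1, 33.3 and 38.2 TPM in controls. The enzymes tyrp1b and dct were not called (log2 differences 0.27 and 0.49). The melanophore higher count was 4 without control 3 or 4, and 13 were higher and 0 lower after rescaling. Of xanthophore and iridophore genes, 2 of 31 tested were higher, 4 lower and 25 not called (median log2 change -0.01), with the purine synthesis genes atic at 12.5 ± 1.41 TPM in PFOS20 and 24.8 ± 2.26 TPM in controls and pnp4a at 6.34 ± 1.31 TPM in PFOS20 and 11.9 ± 0.55 TPM in controls. In the xanthophore list 4 were higher and 4 lower after rescaling.

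Some large groups held few called genes. Of ribosomal proteins, 0 of 83 tested were higher, 1 lower and 82 not called (median log2 change -0.01). rps2 had 4954 ± 248 TPM in PFOS20 and 4548 ± 271 TPM in controls. rpl23a had 4100.4 ± 183 TPM in PFOS20 and 4370.2 ± 65.8 TPM in controls, and neither was called. Of proteasome genes, 5 of 49 tested were higher, 0 lower and 44 not called (median log2 change 0.07). The called ones were led by proteasome activators. psme4a had 29.7, 23.6 and 23.7 TPM in PFOS20, against 8.26, 7.46 and 9.07 TPM in controls. psme2 had 10.9 ± 1.15 TPM in PFOS20 and 4.57 ± 0.05 TPM in controls. Of cilia and axoneme genes, 3 of 54 tested were higher, 1 lower and 50 not called (median log2 change 0.03), and foxj1a, the master factor of motile cilia, had 4.52, 6.79 and 6.14 TPM in PFOS20, against 1.76, 1.16 and 1.36 TPM in controls. Of 44 Hox genes, which pattern the body axis, 1 was higher and 3 were lower. Of mitochondrial ribosomal proteins, 12 of 72 tested were higher, 0 lower and 60 not called (median log2 change 0.18). The share higher was 16.7%, against 8.06% of all tested genes. mrpl14 led them at 84.1 ± 11.3 TPM in PFOS20 and 48.5 ± 6.41 TPM in controls. In the proteasome list the higher count was 2 without PFOS20 replicate 3 and 2 to 3 without 1 control, and 21 were higher and 0 lower after rescaling. In the cilia list the higher count was 1 without PFOS20 replicate 3 and 1 without control 2 or 3, the lower count was 3 without PFOS20 replicate 4, and 9 were higher and 1 lower after rescaling. In the mitochondrial ribosome list the higher count was 2 without PFOS20 replicate 3 and 3 to 6 without 1 control, and 40 were higher and 0 lower after rescaling.

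OBS is the fluorinated surfactant that the series names as a PFOS alternative. Against larvae given OBS at the same 20 mg/L, fewer genes were called in PFOS20 larvae than against controls. limma called 441 of 27737 tested genes (1.59%) higher and 316 (1.14%) lower in PFOS20 than in OBS20. These counts moved with single libraries. Without OBS20 replicate 3, 738 genes (2.66%) were higher and 1580 (5.70%) lower. Without OBS20 replicates 1 and 2 the higher counts were 120 and 170 and the lower counts 20 and 32. Without PFOS20 replicates 2, 3 and 4 the higher counts were 112, 79 and 229 and the lower counts 25, 24 and 283.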

How the data were processed

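Total RNA from whole larvae was extracted with TRIzol, poly(A) selected and sequenced as paired ends, per the labels' protocols. The authors deposited 1 table of TPM values, with read mapping and quantification by HISAT2, StringTie and RSEM on the GRCz11 zebrafish genome, per the submitters' processing notes. Versions are not given in the sources used here. TPM divides out gene length and library total, so depth is unknown and a change in a few abundant transcripts shifts all others. Each of the 12 columns summed to between 999998.88 and 1000000.64.

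Groups came from the labels. Genes with at least 1 TPM in 3 or more of the 6 libraries were fitted with limma 3.58.1 in R 4.3.3 on log2(TPM + 1), with empirical Bayes and a mean-variance trend. Tests were two-sided, with Benjamini-Hochberg adjustment over all 28161 tested genes and a call at 0.05. The code was tested on simulated data. PFOS20 and OBS20 were compared by the same fit over their own 6 libraries. Deposited symbols were used as given, and no genome was used here.

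The comparison and the 107 gene lists were chosen with earlier results of these data known. Genes named are the 12 largest changes in each direction among called genes with a symbol, no overlap between the groups and 5 TPM or more on average in whichever group was higher. For each list, up to 3 called members with the largest change in each direction and the 3 most abundant members could be named, plus a fixed panel of markers. Alternatives changed the pseudocount, the filter, the scaling, the libraries fitted, the empirical Bayes setting, a replicate block and single libraries. No list was given a test of its own.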

Additional observations from a re-analysis of the deposited data

How the results depend on the processing

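In PFOS20 against control, a replicate block gave 4477 calls, 1443 higher and 3034 lower. Replicate numbers did not pair the libraries, as deviations of same-numbered libraries correlated at -0.006, -0.006 and -0.023. With the block 3 of 286 called genes named in the text, a tally without mt-atp6 and mt-co3, lost their call. Median-of-ratios and quantile scaling gave 4070 and 3930 higher genes, and a filter at a mean of 5 TPM gave 3115 lower genes, fewer having been tested. Leaving out 1 library gave 2686 to 8158 calls, 988 to 1932 higher and 1698 to 6226 lower. In PFOS20 against OBS20, leaving out 1 library gave 103 to 2318 calls, 79 to 738 higher and 20 to 1580 lower. There, median-of-ratios scaling gave 1544 calls, 792 higher and 752 lower, and quantile normalisation 2306 calls, 1102 higher and 1204 lower. The cause of these shifts was not tested. None of the 286 genes of that tally changed direction under any alternative run. These 286 were picked as called, many for the largest changes, so their stability says little about other calls. Of them, 272 kept their call without any 1 library, 278 after median-of-ratios scaling and all 286 after quantile normalisation. Outside the tally, mt-atp6 and mt-co3 lost theirs after quantile normalisation, as given above. The fit of all 12 libraries lost 8, among them acacb (adjusted p = 0.072), dnajc5aa (0.11), heatr1 (0.088) and znf1141 (0.11). Differences in transcripts of a few TPM are limited by the unknown depth and by 3 libraries per group.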

Other observations

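Of genes of the daily clock, 4 of 45 tested were higher, 12 lower and 29 not called (median log2 change -0.20), which is 8.89% higher and 26.7% lower against 8.06% and 17.0% of all tested genes. nfil3, a clock output repressor, had 36.2, 38.1 and 40.5 TPM in PFOS20, against 17.6, 14.8 and 15.6 TPM in controls. cry3b, a cryptochrome, had 14.1 ± 1.09 TPM in PFOS20 and 32.3 ± 0.54 TPM in controls. tefb, a PAR-family factor, had 63.5 ± 3.97 TPM in PFOS20 and 99.1 ± 5.34 TPM in controls. In the clock list the higher count was 1 and 2 without PFOS20 replicates 3 and 4 and 1 without 1 control, the lower count was 4 without PFOS20 replicate 3 and 4 to 6 without 1 control, and 8 were higher and 12 lower after rescaling. Of retinoid handling genes, 4 of 45 tested were higher, 14 lower and 27 not called (median log2 change -0.30). Most called ones were lower. Among the higher, rbp7a, a cellular retinol binding protein, had 38.3 ± 8.95 TPM in PFOS20 and 12.3 ± 1.77 TPM in controls. The retinoid lower count was 8 and 5 without PFOS20 replicates 2 and 3 and 5 to 7 without 1 control. After rescaling 10 were higher and 11 lower. In the lysosome and autophagy list, 15 of 67 tested were higher, 5 lower and 47 not called (median log2 change 0.11). Of cathepsin genes, ctss2.1 had 14.5 ± 3.52 TPM in PFOS20 and 4.87 ± 1.23 TPM in controls. ctsc had 25.5 ± 2.2 TPM in PFOS20 and 11 ± 0.33 TPM in controls. ctsla had 641 ± 31.3 TPM in PFOS20 and 303 ± 21.5 TPM in controls. In the lysosome list the higher count was 6 without PFOS20 replicate 3 and 7 and 6 without controls 3 and 4, the lower count was 3 and 1 without PFOS20 replicates 2 and 3 and 1 without 1 control, and 25 were higher and 5 lower after rescaling.

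Shares called were 13.2% higher and 13.2% lower in the Wnt, 8.51% higher and 17.0% lower in the Fgf and 2.22% higher and 13.3% lower in the Notch and Hedgehog list, against 8.06% and 17.0% of all tested genes. Of Bmp and Tgf-beta genes, 10 of 62 tested were higher, 5 lower and 47 not called (median log2 change 0.04), and tgfbr2a, a receptor, had 4.44 ± 0.28 TPM in PFOS20 and 1.45 ± 0.25 TPM in controls. In the Bmp and Tgf-beta list the higher count was 3 without PFOS20 replicate 3 and 3 without 1 control, the lower count was 3, 2 and 10 without PFOS20 replicates 2, 3 and 4 and 2 to 3 without 1 control, and 23 were higher and 4 lower after rescaling. Of Wnt genes, 7 of 53 tested were higher, 7 lower and 39 not called (median log2 change 0.14). wnt4b, a ligand, had 16.7 ± 2.82 TPM in PFOS20 and 3.63 ± 1.11 TPM in controls. notum1b, an extracellular inhibitor, had 15.8 ± 1.22 TPM in PFOS20 and 8.14 ± 0.067 TPM in controls. In the Wnt list the higher count was 3 without PFOS20 replicate 3 and 4 and 3 without controls 3 and 4, the lower count was 4 and 2 without PFOS20 replicates 2 and 3 and 1 to 3 without 1 control, and 16 were higher and 5 lower after rescaling. Of Fgf genes, 4 of 47 tested were higher, 8 lower and 35 not called (median log2 change 0.00). Of the 4 higher, dusp1, a phosphatase of MAP kinases, had 102, 94.0 and 85.7 TPM in PFOS20, against 62.2, 53.9 and 54.8 TPM in controls. In the Fgf list the higher count was 0 and 2 without PFOS20 replicates 3 and 4 and 0 to 1 without 1 control, the lower count was 3 without PFOS20 replicate 3 and 3 to 5 without 1 control, and 12 were higher and 8 lower after rescaling. Of Notch and Hedgehog genes, 1 of 45 tested was higher, 6 lower and 38 not called (median log2 change -0.16). The Notch and Hedgehog higher count was 3 without PFOS20 replicate 2, and 6 were higher and 6 lower after rescaling. Of insulin-like growth factor genes, 4 of 21 tested were higher, 3 lower and 14 not called (median log2 change 0.20). igf2b, a growth factor, had 17.5 ± 2.63 TPM in PFOS20 and 8.24 ± 0.97 TPM in controls. The insulin-like growth factor lower count was 0 without PFOS20 replicate 2 or 3 and 0 to 1 without 1 control. After rescaling 8 were higher and 1 lower.

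Of translation factors, 4 of 74 tested were higher, 9 lower and 61 not called (median log2 change -0.10). eif4ebp3l, an inhibitor of cap-dependent translation, had 138, 145 and 101 TPM in PFOS20, against 70.1, 60.3 and 54.4 TPM in controls. eef1a1b, an elongation factor, had 3.22 ± 0.76 TPM in PFOS20 and 11.1 ± 0.99 TPM in controls. In the translation factor list the higher count was 2 without PFOS20 replicate 3, the lower count was 3 without PFOS20 replicate 3 and 4 and 5 without controls 3 and 4, and 7 were higher and 8 lower after rescaling. Of aminoacyl-tRNA synthetases, 3 of 33 tested were higher, 1 lower and 29 not called (median log2 change 0.14). The synthetase higher count was 1 without PFOS20 replicate 3 or control 3 or 4, and 14 were higher and 0 lower after rescaling. Of calcium balance hormones and receptors, 4 of 19 tested were higher, 1 lower and 14 not called (median log2 change 0.15), pth1a and pth1b among the higher ones. Of lens membrane genes, 0 of 19 tested were higher, 8 lower and 11 not called (median log2 change -0.44). The lens membrane lower count was 3 and 0 without PFOS20 replicates 2 and 3 and 0 to 2 without 1 control. The calcium higher count was 2 without control 3 or 4, and 7 were higher and 1 lower after rescaling. The lists of steroid and glucocorticoid, thyroid, vitamin B12 and folate, chaperonin, blood stem cell, germ cell and vitellogenin genes held 1 to 24 tested genes each, of which 0 to 4 were higher and 0 to 3 lower.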
